A study of Mus musculus with 8 samples.

Results

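RNA bound to GFP-tagged ribosomes was compared between mouse skin 7 days after wounding (n = 3 libraries) and uninjured mouse skin (n = 3). These 6 libraries were chosen by their titles from a series of 8, in which the other 2 came from skin 3 days after wounding. The table held 53700 gene identifiers, of which 18656 passed a filter on low counts and were tested. Every library had the genotype AdipoqCreER;R26-NuTRAP and the treatment Tamoxifen, so the uninjured controls carried the same recombinase, reporter and drug as the wounded mice. The labels give the tissue as skin and the cell type as adipocyte. The protocol, which is the same text for all libraries, gives an age of 7 to 9 weeks and the resting phase of the hair cycle for mice at wounding, with 4 full-thickness wounds made by a 5 mm punch. It does not give the age or hair cycle phase of the uninjured mice at collection. Polysomes were captured with an antibody to GFP, and 20 ng of the recovered RNA went into each SMART-Seq library. The labels do not say whether libraries came from separate animals or from pools. The p-values below thus judge changes only against the spread between these libraries, which need not be that between animals. All 8 libraries were fitted together, so the 2 day 3 libraries also entered the estimate of that spread. In the deposited table all columns of a group share a numeric prefix whose meaning is not stated, and an effect of what it marks cannot be told apart from that of wounding.

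AdipoqCreER is a tamoxifen-dependent Cre recombinase made under the control of the adiponectin gene, which in skin is active in fat cells. NuTRAP is a cassette in the Rosa26 locus that, after recombination, adds GFP to the ribosomal protein L10a and mCherry to the nuclear envelope protein RanGAP1. Capture of the tagged ribosomes enriches the RNA that marked cells were translating, with some carry-over of RNA from other cells. Full-thickness wounds of mouse skin fill with granulation tissue, in which fibroblasts deposit collagen, some become contractile myofibroblasts, vessels sprout and macrophages clear debris. The fat layer of the dermis lies next to the panniculus carnosus, a thin sheet of skeletal muscle. Because values are shares of the recovered RNA, fewer cells of a type and less RNA per cell cannot be told apart in them.

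Uninjured libraries held 7883909 to 17751689 counts and day 7 libraries 6763290 to 9292594. The biological coefficient of variation, the spread of a typical gene beyond counting noise, was 31.5% among uninjured and 38.5% among day 7 libraries. Day 7 replicate 3 stood apart from its group. On the first principal component of log CPM (read counts scaled to the library total, by TMM), which held 49.0% of the variance, it lay at 5.56, against 103 and 73.4 for day 7 replicates 1 and 2 and -79.8 to -37.8 for the uninjured libraries. Its correlation across genes was 0.911 to 0.928 with the uninjured libraries and 0.876 and 0.935 with day 7 replicates 1 and 2. Below, 3 values given together are CPM in the order replicate 1, 2 and 3, and changes are written from the uninjured to the day 7 libraries. U1 to U3 and D1 to D3 stand for the 3 uninjured and the 3 day 7 replicates where a call depended on them.

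The labelled cell type was checked against defining markers. All 10 adipocyte markers were detected in each of the 6 libraries, and their summed level was 73860, 93140 and 91990 CPM in the uninjured and 45610, 54550 and 96610 CPM in the day 7 libraries. Markers of other cell types were present too. Of the 9 skeletal muscle markers, all fell (summed levels 9914, 6369 and 4559 CPM to 765, 1371 and 1341 CPM). Of the 7 luminal epithelial markers, all rose, from sums of 16.2, 29.1 and 13 CPM, with the milk protein gene Csn3 at 0, to 1167, 1327 and 607 CPM. Of 6 fibroblast markers 4 rose and 0 fell, with sums of 1045, 1452 and 821 CPM in the uninjured and 5661, 7790 and 4052 CPM in the day 7 libraries. Of 5 keratinocyte markers 0 rose and 0 fell. Their sums were 1635, 2187 and 1294 CPM in the uninjured and 4790, 1479 and 1402 CPM in the day 7 libraries. The part of these other cells in the results on single genes was not tested.

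At day 7, 1101 genes rose (5.9% of those tested) and 330 fell (1.77%) at an adjusted p under 0.05 in edgeR's quasi-likelihood test with Benjamini-Hochberg adjustment. The median log2 fold change of all tested genes was 0.04, with 9715 genes above 0 and 8941 below. All 3 day 7 libraries lay above all 3 uninjured ones in 3117 genes (16.7%) and below them in 2521 (13.5%), so that 30.2% of genes had no overlap. Counts of lists are read against these shares, and a list whose share is near them gives no result about its members. Among called genes the groups did not overlap in 1077 of 1101 rises and 329 of 330 falls. Separate groups, where given below for a called gene, therefore add little to the call. Genes that rose had low levels in uninjured skin (median 2.28 CPM, against 14.8 CPM at day 7), and genes that fell had higher ones (median 46.4 CPM, against 14.4 CPM at day 7). The median change was 2.59 on the log2 scale among rises and -1.77 among falls. At least 4-fold changes were seen in 789 of the rises and 142 of the falls. Summed, the genes that rose made up 0.934%, 1.11% and 0.809% of counts in uninjured libraries and 7.70%, 7.04% and 2.99% in day 7 libraries. The genes that fell made up 7.07%, 6.21% and 5.97% in uninjured and 1.80%, 2.46% and 2.50% in day 7 libraries. These sums describe genes chosen by the same contrast, so nothing is read from their direction.

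**Figure D1:**
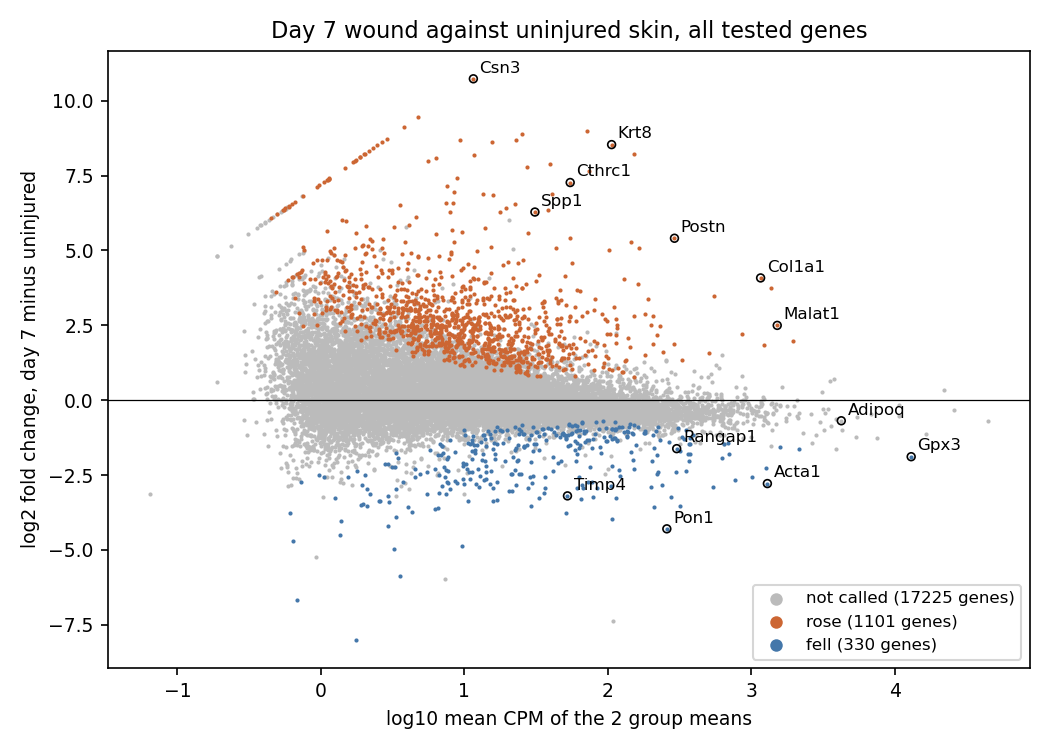
Each point is 1 of 18656 tested genes, placed by the log10 of the average of its 2 group means in CPM (horizontal) and its fitted log2 fold change, day 7 minus uninjured (vertical); orange points rose, blue points fell and grey points were not called. Rises reach larger fold changes and lie mostly at low levels, and falls lie mostly at higher levels; the straight upper edge on the left is made of genes with no count in uninjured libraries, whose fitted change has no fixed size.

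The genes with the largest rises at a level of at least 20 CPM were mostly epithelial. Of the 15, the keratin genes Krt8 and Krt19, the tight junction gene Cldn3 and the luminal transcription factor gene Foxa1 are active in glandular epithelium, as are Csn3, Wfdc2, Wfdc18, Tmprss2 and Slc5a5. Krt71, Krt25, Krt35 and Tchh are made in the growing hair follicle. The others were Atp6v1b1, a proton pump subunit, and Cthrc1, a secreted protein of collagen-making fibroblasts. Of the 15 largest falls, 12 are known from skeletal muscle (Apobec2, Myot, Hspb7, Hspb6, Trim63, Dusp13, Neu2, Mybpc2, Csrp3, Ppp1r27, Tcap and Pygm). The remaining 3 were Pon1, a lipoprotein-bound esterase, Timp4, a metalloproteinase inhibitor, and Akr1cl, an aldo-keto reductase. The calls of Csn3, Krt19, Cldn3, Foxa1, Wfdc18, Tmprss2, Slc5a5, Atp6v1b1 and Cthrc1 held with any 1 library left out. Lost calls were those of Krt25 and Tchh on leaving out U1, U2, U3 or D1, and Krt8, Krt71 and Krt35 on leaving out U1, U2 or U3 (highest adjusted p per gene from 0.0655 to 0.245). Wfdc2 missed the threshold on leaving out U1 or U2 (highest adjusted p = 0.0652). Krt35 did not pass the filter on low counts on leaving out D1 or D2. Leaving out any 1 library kept the calls of Apobec2, Myot, Hspb7, Trim63, Dusp13, Mybpc2, Ppp1r27, Tcap, Pygm, Pon1 and Timp4. The call was lost for Neu2 and Csrp3 on leaving out U1, D1 or D2, and Hspb6 on leaving out D1 or D2 (highest adjusted p per gene from 0.0566 to 0.102). Akr1cl lost its call on leaving out U2 or D1 (highest adjusted p = 0.0766).

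**Figure D2:**
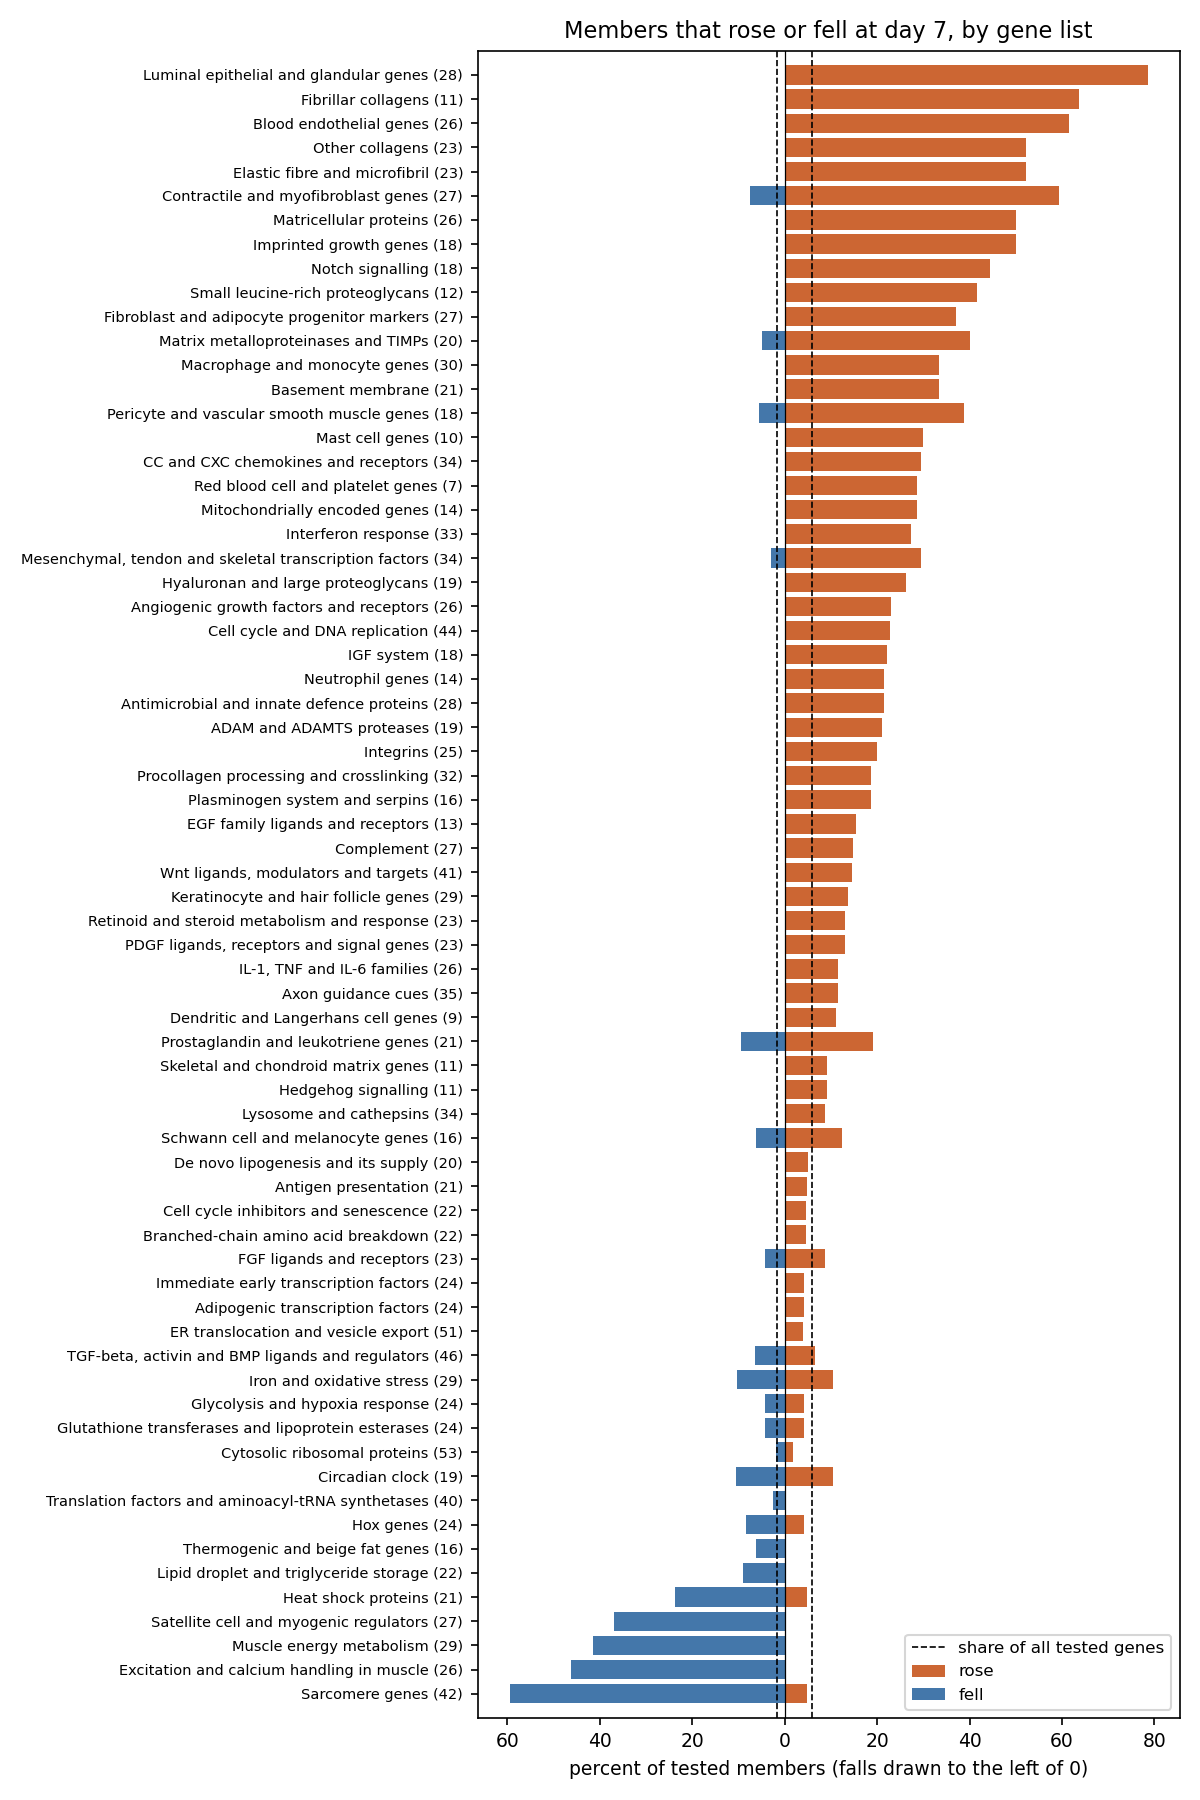
For each gene list (number of tested members in parentheses), bars show the percent of tested members that rose (orange, to the right) and fell (blue, drawn to the left), and dashed lines show the shares among all tested genes, 5.9% and 1.77%. Lists with no called member are not drawn; the luminal epithelial, fibrillar collagen, blood endothelial and contractile lists reach furthest to the right, and the 4 muscle lists furthest to the left.

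Fibrillar collagen genes were higher at day 7. Of 11 tested, 7 rose and 0 fell (median log2 fold change 2.5, with 4 to 9 rises when 1 library was left out), and in 9 all day 7 libraries lay above all uninjured ones. Type I collagen is the main fibre of dermis and scar. Its chain Col1a1 rose from 107, 151 and 131 CPM to 2312, 2919 and 1359.5 CPM (log2 fold change 4.08 ± 0.42 SE, edgeR adjusted p = 0.000944). The partner chain Col1a2 rose from 137, 231 and 198 CPM to 2427, 3409.5 and 1828 CPM (log2 fold change 3.76 ± 0.43 SE, edgeR adjusted p = 0.00182). Col3a1, the type III chain of early wound matrix, rose from 797, 727 and 859.9 CPM to 2528, 4649.5 and 2223 CPM (log2 fold change 1.98 ± 0.48 SE, edgeR adjusted p = 0.034). In each of these genes the groups did not overlap, and day 7 replicate 3 was the lowest wounded library. A further pair of fibrillar chains started lower. Col5a1, which helps to start fibrils, rose from 69.3, 66.5 and 46.2 CPM to 359, 444 and 226 CPM (log2 fold change 2.5 ± 0.39 SE, edgeR adjusted p = 0.00697). Col27a1, a chain best known from cartilage, rose from 2.56, 2.76 and 2.02 CPM to 28.5, 22.8 and 7.07 CPM (log2 fold change 2.97 ± 0.49 SE, edgeR adjusted p = 0.00812). Col1a1, Col1a2, Col5a1 and Col27a1 passed in all 6 fits without 1 library. The test no longer called Col3a1 on leaving out any 1 library other than D3 (highest adjusted p = 0.13).

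Among the other collagens, 12 of 23 tested rose and 0 fell (median 2.41, with 6 to 16 rises when 1 library was left out). Type VI collagen forms beaded filaments around cells, fat cells included. Its chain Col6a3 rose from 49, 57.8 and 50.5 CPM to 249, 291 and 127 CPM (log2 fold change 2.08 ± 0.32 SE, edgeR adjusted p = 0.00682). Col6a2 rose from 33.8, 53.2 and 24 CPM to 199, 239 and 148 CPM (log2 fold change 2.39 ± 0.38 SE, edgeR adjusted p = 0.00726). Every day 7 library exceeded every uninjured one in both chains. Col14a1, a collagen that coats fibrils, rose from 3.78, 6.92 and 3.32 CPM to 39.5, 56.5 and 22 CPM (log2 fold change 3.04 ± 0.41 SE, edgeR adjusted p = 0.00392). Col8a1, a short-chain collagen of remodelling vessels and matrix, rose from 0.488, 2.82 and 1.01 CPM to 25.8, 53.8 and 27.4 CPM (log2 fold change 4.5 ± 0.55 SE, edgeR adjusted p = 0.00241). Both were highest in day 7 replicate 2. Without any 1 of the 6 libraries, Col6a3, Col6a2, Col14a1 and Col8a1 still passed.

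The basement membrane is the sheet that surrounds each adipocyte, vessel and epithelium. Of its 21 tested genes 7 rose and 0 fell (median 0.90, with 1 to 9 rises when 1 library was left out). Lama5, a laminin chain, rose from 3.05, 2.94 and 3.61 CPM to 65.1, 36.5 and 14.4 CPM (log2 fold change 3.6 ± 0.55 SE, edgeR adjusted p = 0.00663). Agrn, the proteoglycan agrin, rose from 8.17, 8.27 and 8.38 CPM to 52.5, 34.9 and 11.4 CPM (log2 fold change 1.99 ± 0.44 SE, edgeR adjusted p = 0.0236). Uninjured values were close together in both genes, and day 7 replicate 3 was the wounded library nearest to them. The summed level of 5 endothelial markers was lowest in the same library (395, 336 and 106 CPM at day 7, against 66.2, 152 and 70.04 CPM in uninjured libraries), and its part in these changes was not tested. Replicate 3 was the lowest wounded library in 87.1% of all genes that rose. Lama5 passed in all 6 fits without 1 library. Agrn was not called on leaving out any 1 library other than D3 (highest adjusted p = 0.0956).

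Enzymes and chaperones modify, trim and crosslink collagen before and after export. Of 32 tested, 6 rose and 0 fell (median 0.58, with 3 to 7 rises when 1 library was left out). Bmp1, the protease that trims the C-terminal propeptide of procollagen, rose from 10.4, 10.7 and 9.39 CPM to 98.6, 123 and 54.9 CPM (log2 fold change 3.18 ± 0.33 SE, edgeR adjusted p = 0.000944). Fkbp10, a chaperone of procollagen in the endoplasmic reticulum, rose from 3.17, 4.16 and 2.89 CPM to 42.9, 72.2 and 36.4 CPM (log2 fold change 3.86 ± 0.37 SE, edgeR adjusted p = 0.000944). P4ha3, a catalytic subunit of prolyl hydroxylase, rose from 2.81, 2.82 and 1.59 CPM to 19.5, 34.2 and 20.2 CPM (log2 fold change 3.33 ± 0.51 SE, edgeR adjusted p = 0.00621). The groups were separate in all 3. Loxl1, a lysyl oxidase that crosslinks elastin, rose from 12.3, 19.7 and 6.79 CPM to 61.6, 70.1 and 36.7 CPM (log2 fold change 2.1 ± 0.37 SE, edgeR adjusted p = 0.0106). The general secretory machinery had few calls. Of 51 genes of translocation into and export from the endoplasmic reticulum 2 rose, Creb3l1, a transcription factor of secretory cells, and Kdelr3, a receptor that retrieves chaperones (1 to 2 rises and 0 to 3 falls when 1 library was left out). The share of all tested genes that rose was 5.9%. Kdelr3 rose from 6.46, 5.21 and 3.32 CPM to 24.8, 46.3 and 31.5 CPM (log2 fold change 2.76 ± 0.47 SE, edgeR adjusted p = 0.00901). In the list of 28 folding and unfolded protein response genes 0 rose and 0 fell in edgeR (median -0.37, with 0 to 2 rises and 0 to 5 falls when 1 library was left out), with 3 higher and 6 lower at an unadjusted p under 0.05, and 1 rose and 3 fell in DESeq2. In each fit without 1 library Bmp1, Fkbp10, P4ha3 and Kdelr3 passed. Creb3l1 went uncalled on leaving out any 1 library other than D3, and Loxl1 on leaving out U1 (highest adjusted p per gene from 0.0532 to 0.144).

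Elastic fibre genes rose in 12 of 23 cases, with 0 falls (median 1.83, with 5 to 15 rises when 1 library was left out). Microfibrils are strings of fibrillin that scaffold elastin and hold growth factors. Mfap4, a microfibril-associated protein, rose from 15.5, 9.19 and 11.7 CPM to 91.5, 142 and 83.1 CPM (log2 fold change 3.13 ± 0.37 SE, edgeR adjusted p = 0.00218). Fbn2, the fibrillin of embryonic and healing tissue, rose from 0.976, 1.65 and 1.3 CPM to 26.2, 28.7 and 11.9 CPM (log2 fold change 4.04 ± 0.51 SE, edgeR adjusted p = 0.00281). Mfap2 rose from 4.76, 9.19 and 5.49 CPM to 61.1, 94.7 and 41.1 CPM (log2 fold change 3.32 ± 0.45 SE, edgeR adjusted p = 0.00392). No day 7 library reached down to the uninjured range of these genes, and replicate 2 was highest in each. Fbln2, a fibulin that bridges elastin and basement membrane, rose from 15.4, 20.6 and 13.7 CPM to 117, 184 and 81.8 CPM (log2 fold change 2.94 ± 0.41 SE, edgeR adjusted p = 0.00448). Omitting 1 library at a time left Mfap4, Fbn2, Mfap2 and Fbln2 called.

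Small leucine-rich proteoglycans bind collagen fibrils and set their thickness. Of 12 (of 16 listed) tested, 5 rose and 0 fell (median 1.56, with 3 to 5 rises when 1 library was left out). Aspn, asporin, rose from 4.88, 4.72 and 3.9 CPM to 84.3, 138 and 102 CPM (log2 fold change 4.58 ± 0.38 SE, edgeR adjusted p = 0.00035). Bgn, biglycan, rose from 29, 45.4 and 24.1 CPM to 277, 432 and 329 CPM (log2 fold change 3.39 ± 0.42 SE, edgeR adjusted p = 0.00259). Lum, lumican, rose from 16.7, 31.9 and 16.2 CPM to 132, 213 and 133 CPM (log2 fold change 2.87 ± 0.40 SE, edgeR adjusted p = 0.00416). Day 7 replicate 3 was not the lowest wounded library in any of these 3 genes. Dcn, decorin, rose from 115, 182 and 76 CPM to 408, 616 and 342 CPM (log2 fold change 1.87 ± 0.44 SE, edgeR adjusted p = 0.0295). In the hyaluronan and large proteoglycan list 5 of 19 rose and 0 fell (median 1.42, with 1 to 8 rises when 1 library was left out). Cemip2, a cell-surface protein of hyaluronan turnover, rose from 4.51, 2.76 and 4.91 CPM to 46.3, 39.9 and 18.4 CPM (log2 fold change 3.13 ± 0.45 SE, edgeR adjusted p = 0.0048). Prg4, the joint lubricant lubricin, rose from 2.68, 6.25 and 2.46 CPM to 12.5, 56.4 and 51 CPM (log2 fold change 3.34 ± 0.59 SE, edgeR adjusted p = 0.00996). Prg4 was over 4 times lower in day 7 replicate 1 than in replicates 2 and 3. Calls for Aspn, Bgn, Lum and Cemip2 stood in all fits that omitted 1 library. Dcn was no longer called on leaving out U1, U3, D1 or D2, and Prg4 on leaving out U1 (highest adjusted p per gene from 0.0529 to 0.111).

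Matricellular proteins are secreted into the matrix to signal to cells more than to bear load. Of 26 tested, 13 rose and 0 fell (median 1.8, with 7 to 15 rises when 1 library was left out). Cthrc1, which marks collagen-making fibroblasts of injured tissue, rose from 0.732, 0.735 and 0.578 CPM to 97, 141 and 88.4 CPM (log2 fold change 7.27 ± 0.32 SE, edgeR adjusted p = 2.53e-06), a 154-fold change. Spp1, osteopontin, a product of macrophages and injured stroma, rose from 0.976, 0.674 and 0.722 CPM to 59.2, 85.4 and 39.5 CPM (log2 fold change 6.28 ± 0.40 SE, edgeR adjusted p = 5.86e-05), a 77.8-fold change. Both were under 1 CPM in every uninjured library, far below all day 7 libraries. Postn, periostin, rose from 15.6, 16.7 and 7.65 CPM to 484, 749.6 and 478 CPM (log2 fold change 5.41 ± 0.37 SE, edgeR adjusted p = 7.99e-05). Tnn, tenascin N, rose from 0.244, 0.857 and 0.578 CPM to 12.2, 10.9 and 7.43 CPM (log2 fold change 4.08 ± 0.63 SE, edgeR adjusted p = 0.00682). For Cthrc1 and Postn day 7 replicates 1 and 3 were nearly level and replicate 2 was highest. In the deposited table Cthrc1 (ENSMUSG00000054196.8) spans chromosome 15 from 38940327 to 38950516, and Spp1 (ENSMUSG00000029304.15) spans chromosome 5 from 104582984 to 104588916. Which genome build these coordinates use could not be settled. The calls of Cthrc1, Spp1, Postn and Tnn held with any 1 library left out.

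**Figure D3:**
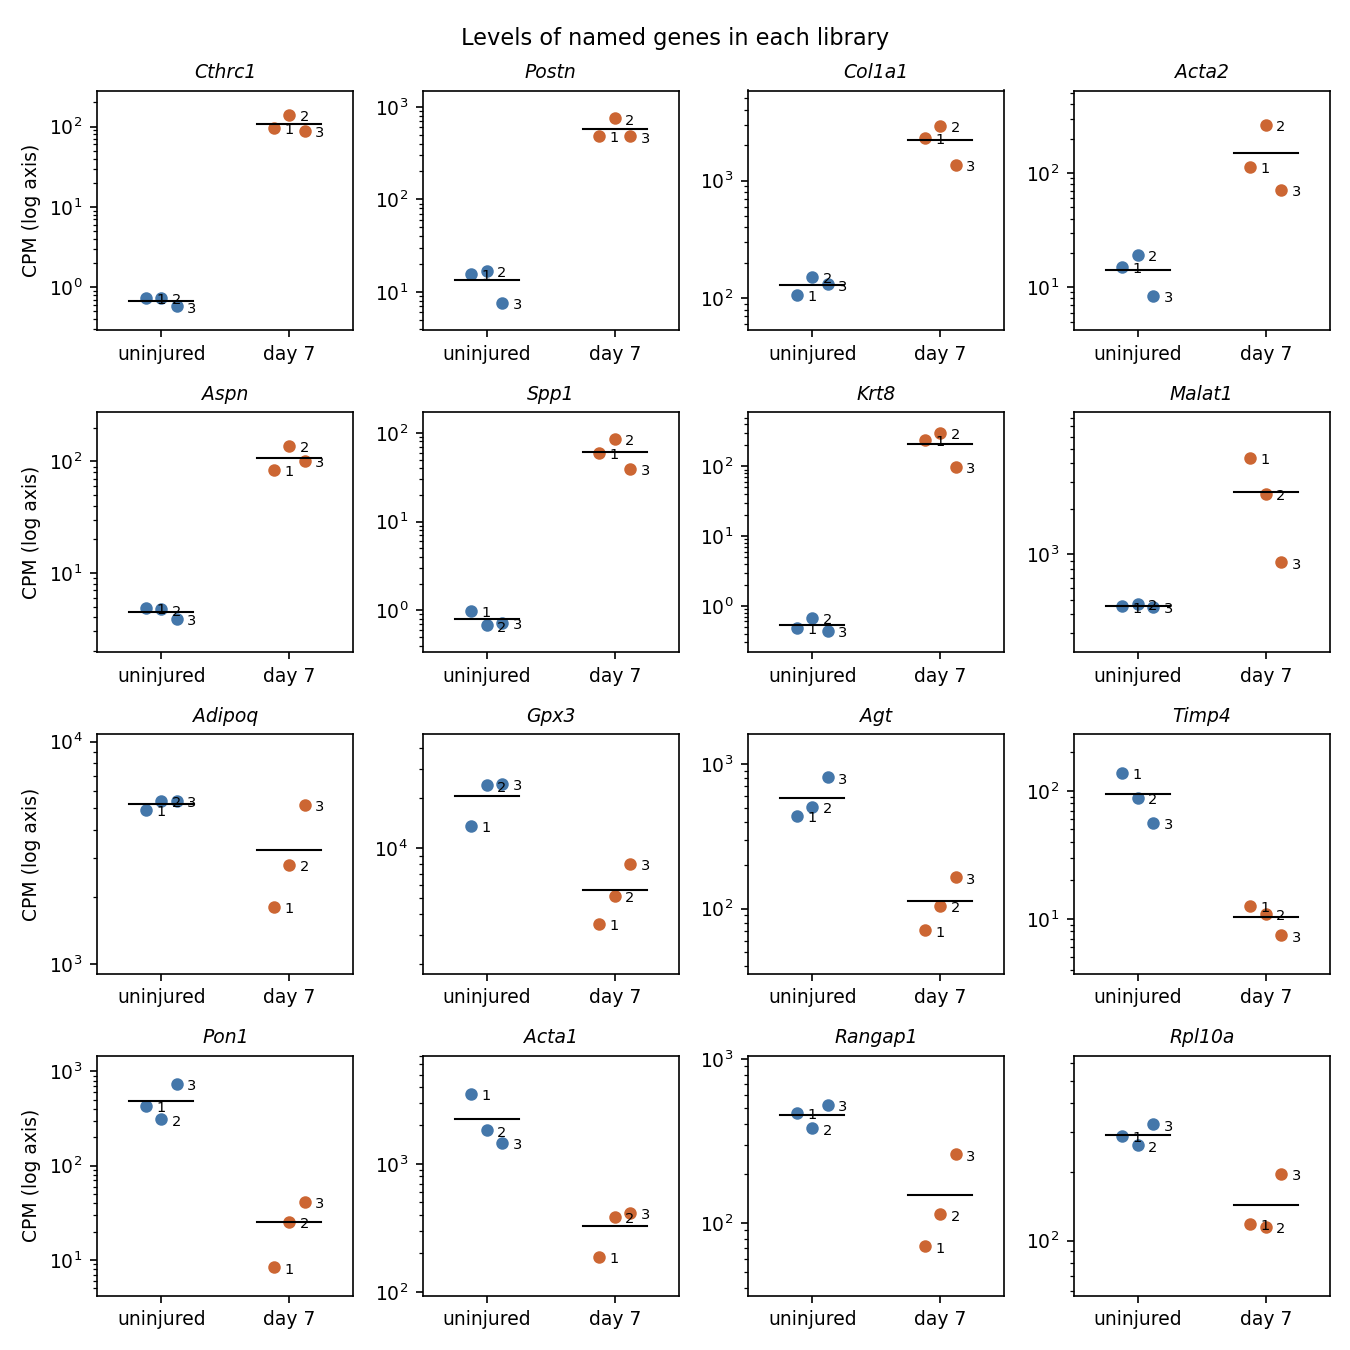
Levels of 16 genes in each library, as TMM-scaled CPM on log axes; dots are libraries with their replicate numbers, blue for uninjured and orange for day 7, and bars are group means. In 15 panels the groups do not overlap, whereas in the panel of Adipoq day 7 replicate 3 lies within the uninjured range.

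Among metalloproteinases that cut the matrix and their inhibitors, 8 of 20 rose and 1 fell (median 1.68, with 6 to 11 rises when 1 library was left out). Mmp12, the elastase of macrophages, rose from 0.488, 0.735 and 1.01 CPM to 25.2, 26.5 and 19.9 CPM (log2 fold change 4.99 ± 0.40 SE, edgeR adjusted p = 0.00035). Mmp23 rose from 2.32, 1.41 and 2.02 CPM to 41.9, 65.5 and 28.3 CPM (log2 fold change 4.59 ± 0.46 SE, edgeR adjusted p = 0.000944). Mmp14, the membrane-bound enzyme that activates Mmp2, rose from 15.2, 35.3 and 18.1 CPM to 213, 253 and 126 CPM (log2 fold change 3.1 ± 0.38 SE, edgeR adjusted p = 0.00241). Every day 7 value of these 3 exceeded every uninjured value. Mmp3, stromelysin, rose from 1.71, 5.14 and 1.88 CPM to 34.6, 61.9 and 32.3 CPM (log2 fold change 3.81 ± 0.46 SE, edgeR adjusted p = 0.00232). The fall was that of Timp4, an inhibitor that is abundant in fat and muscle. It fell from 139.5, 88 and 56 CPM to 12.6, 10.9 and 7.43 CPM (log2 fold change -3.19 ± 0.35 SE, edgeR adjusted p = 0.00142), with day 7 replicate 3 lowest. Leaving out any 1 library kept the calls of Mmp12, Mmp23, Mmp14, Mmp3 and Timp4.

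Other proteases also rose. Of 19 ADAM and ADAMTS genes 4 rose and 0 fell (median 1.34, with 2 to 8 rises when 1 library was left out). Adam19 rose from 1.46, 2.14 and 2.46 CPM to 19.9, 27.5 and 9.46 CPM (log2 fold change 3.22 ± 0.51 SE, edgeR adjusted p = 0.00732). Adam12, a marker of perivascular mesenchymal cells after injury, rose from 7.56, 13.1 and 13.4 CPM to 24, 34.7 and 27.8 CPM (log2 fold change 1.34 ± 0.29 SE, edgeR adjusted p = 0.0223). Neither had overlapping groups. In the plasminogen system, which dissolves fibrin, 3 of 16 rose and 0 fell (2 to 5 rises when 1 library was left out). The activator gene Plat rose from 6.83, 3.25 and 4.04 CPM to 28.3, 48.7 and 24.4 CPM (log2 fold change 2.86 ± 0.42 SE, edgeR adjusted p = 0.0057). Plaur, the urokinase receptor, rose from 1.34, 1.71 and 1.01 CPM to 10.8, 10.9 and 7.07 CPM (log2 fold change 2.78 ± 0.46 SE, edgeR adjusted p = 0.00848). Serpine2, an inhibitor of thrombin and plasminogen activators, rose from 23.2, 15.6 and 12.1 CPM to 49.1, 51 and 32.6 CPM (log2 fold change 1.38 ± 0.30 SE, edgeR adjusted p = 0.0231). Activator, receptor and inhibitor thus all rose, each with day 7 replicate 3 lowest among wounded libraries. Adam19, Plat and Plaur passed in all 6 fits without 1 library. Serpine2 did not pass on leaving out U2, U3, D1 or D2, and Adam12 on leaving out U1, U3 or D2 (highest adjusted p per gene from 0.0931 to 0.0974).

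Contractile and myofibroblast genes rose in 16 of 27 cases and fell in 2 (median 2.31, with 7 to 18 rises and 0 to 2 falls when 1 library was left out). Cnn3, an actin-binding calponin of non-muscle cells, rose from 7.81, 9.37 and 8.09 CPM to 77.3, 121 and 61 CPM (log2 fold change 3.35 ± 0.32 SE, edgeR adjusted p = 0.000944). Lrrc15, a surface protein of activated fibroblasts, rose from 0.732, 2.08 and 0.144 CPM to 61.2, 64.3 and 39.5 CPM (log2 fold change 5.58 ± 0.56 SE, edgeR adjusted p = 0.000944). Lrrc17 rose from 2.44, 1.16 and 1.16 CPM to 23.7, 54.9 and 37.4 CPM (log2 fold change 4.62 ± 0.43 SE, edgeR adjusted p = 0.000944). The lowest day 7 value was over 6 times the highest uninjured value in each. Cdh11, a cadherin that joins fibroblasts, rose from 2.32, 4.41 and 3.61 CPM to 18.6, 28.3 and 18.8 CPM (log2 fold change 2.65 ± 0.35 SE, edgeR adjusted p = 0.00337). The 2 falls were tropomyosins that skeletal muscle also makes. Tpm1 fell from 1449.8, 795 and 614 CPM to 277, 452 and 307 CPM (log2 fold change -1.46 ± 0.36 SE, edgeR adjusted p = 0.0341). Tpm2 fell from 1498, 1027 and 740.3 CPM to 236, 435 and 279 CPM (log2 fold change -1.78 ± 0.34 SE, edgeR adjusted p = 0.0132). Uninjured replicate 1 was highest for both, as for the summed muscle markers, and the part of muscle was not tested. Without any 1 of the 6 libraries, Cnn3, Lrrc15, Lrrc17 and Cdh11 still passed. Tpm1 missed the threshold on leaving out U1, U2, D1 or D2, and Tpm2 on leaving out U1 or D1 (highest adjusted p per gene from 0.0588 to 0.136).

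The actin genes moved in different directions. Acta1, the actin of skeletal muscle, fell from 3507, 1830.2 and 1458 CPM to 187, 385 and 416 CPM (log2 fold change -2.78 ± 0.46 SE, edgeR adjusted p = 0.00848). Acta2, the actin of smooth muscle and myofibroblasts, rose from 15, 19.2 and 8.38 CPM to 114, 265 and 70.9 CPM (log2 fold change 3.38 ± 0.57 SE, edgeR adjusted p = 0.00848). Actg2, the other smooth muscle actin, rose from 0.976, 1.22 and 0.289 CPM to 6.34, 13.3 and 1.68 CPM (log2 fold change 3.02 ± 0.79 SE, edgeR adjusted p = 0.0421). The groups of all 3 did not overlap. Actg2, Actb, Actg1 and Actc1 were looked up once the values of Acta1 and Acta2 were known. Actg1, a cytoplasmic actin, rose from 42.6, 46.1 and 42.6 CPM to 89.9, 113 and 102 CPM (log2 fold change 1.22 ± 0.21 SE, edgeR adjusted p = 0.00991). Actb, the other cytoplasmic actin, was at 221, 387 and 194 CPM in uninjured skin, at 635, 550.2 and 399 CPM on day 7, and did not pass (log2 fold change 0.98 ± 0.30 SE, edgeR adjusted p = 0.0709). Actc1, the cardiac actin that regenerating muscle also makes, was at 2.2, 2.08 and 0.578 CPM in uninjured skin, at 5.21, 5.97 and 6.83 CPM on day 7, and did not pass (log2 fold change 1.85 ± 0.61 SE, edgeR adjusted p = 0.0871). In all 3 the day 7 libraries lay above the uninjured ones, although Actb and Actc1 missed the threshold. Per kilobase of the table's gene length, the mean level of Acta1 was 1475 CPM in uninjured skin and 214 CPM on day 7. That of Acta2 on the same scale was 6.47 and 68.2 CPM, so that Acta1 stayed the higher of the pair at day 7. In each fit without 1 library Acta1 and Acta2 passed. Actg2 lost its call on leaving out any 1 library other than D3, and Actg1 on leaving out U1 (highest adjusted p per gene from 0.0604 to 0.175). Without day 7 replicate 3 a call was added for Actb (log2 fold change 1.15, edgeR adjusted p = 0.0242).

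Promoter sequence is shown for 3 of these actins because they share a protein family while 1 fell, 1 rose and 1 did not pass. RefSeq windows on GRCm38.p6 were read for the 250 bases before the annotated start, in the direction of transcription. Capitals mark a strict CArG box, a form of the site of serum response factor searched as CC, then 6 bases that are each A or T, then GG, and the letters TATAAA, each on both strands. The 3 windows lie at chr8:123894776-123895025, chr2:114052876-114053125 and chr19:34255374-34255623, all on the minus strand.
Acta1: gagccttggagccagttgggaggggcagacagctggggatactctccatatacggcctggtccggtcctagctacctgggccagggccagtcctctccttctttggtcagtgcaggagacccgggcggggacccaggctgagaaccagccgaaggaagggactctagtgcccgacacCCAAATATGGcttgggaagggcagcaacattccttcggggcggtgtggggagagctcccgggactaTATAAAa
Actc1: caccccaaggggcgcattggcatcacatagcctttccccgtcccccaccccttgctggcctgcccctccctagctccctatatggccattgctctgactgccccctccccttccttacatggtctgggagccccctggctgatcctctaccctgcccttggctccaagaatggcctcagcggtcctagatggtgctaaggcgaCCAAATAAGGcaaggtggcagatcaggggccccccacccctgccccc
Acta2: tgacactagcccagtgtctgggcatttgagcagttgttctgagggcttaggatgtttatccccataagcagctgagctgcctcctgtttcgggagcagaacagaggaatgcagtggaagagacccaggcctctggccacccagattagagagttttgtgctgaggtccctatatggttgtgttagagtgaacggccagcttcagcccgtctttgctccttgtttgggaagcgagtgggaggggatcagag
The window of Acta1 held 1 strict CArG box, with its first base 73 bases before the start, and TATAAA 7 bases before it. The window of Actc1 held 1 strict box 47 bases before the start. That of Acta2 held neither of these exact patterns. Serum response factor also binds boxes that differ from the strict form by a base, and a search for those was added after the windows were seen. With exactly 1 base different, Acta2 held 2 boxes (ccctatatgg, with its first base 84 bases before the start, and ccttgtttgg, 34 bases before it), Actc1 held 3 and Acta1 held 2, and 19.9% of all genes with a window held at least 1. Actg2 is named only. Over all 27025 genes with a window, 1.62% held a strict CArG box and 14.3% held TATAAA. A strict box was found in 3 of 20 windows (15%) of the contractile list and in 6 of 30 (20%) of the sarcomere list. The share was 2.7% among genes that rose and 4.76% among genes that fell. A match describes letters and says nothing of binding.

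Progenitor and fibroblast markers rose in 10 of 27 cases with 0 falls (median 1.18, with 3 to 13 rises and 0 to 1 falls when 1 library was left out). The log2 fold change was above 0 in 22 members and below 0 in 5. The summed level of the list was nonetheless lower at day 7. It was 10640, 12760 and 12050 CPM in uninjured and 3672, 6468 and 7713 CPM in day 7 libraries. Cd9, a tetraspanin of adipocyte progenitors that epithelia also carry, rose from 33.4, 32.6 and 24.8 CPM to 255, 234 and 106 CPM (log2 fold change 2.71 ± 0.39 SE, edgeR adjusted p = 0.0048). Clec3b, tetranectin, rose from 7.93, 9.74 and 4.19 CPM to 51.2, 70.1 and 24.7 CPM (log2 fold change 2.72 ± 0.41 SE, edgeR adjusted p = 0.0060). Dlk1, which holds back adipocyte differentiation, rose from 0.122, 0.245 and 0 CPM to 2.83, 4.39 and 6.47 CPM (log2 fold change 4.82 ± 0.81 SE, edgeR adjusted p = 0.00848). For these 3 the groups were separate, and only Dlk1 was highest in day 7 replicate 3. Crabp1, a retinoic acid binding protein of some dermal fibroblasts, rose from 1.46, 10.2 and 3.32 CPM to 29.5, 58.4 and 32.8 CPM (log2 fold change 2.95 ± 0.62 SE, edgeR adjusted p = 0.0196). Omitting 1 library at a time left Cd9, Clec3b and Dlk1 called. The test no longer called Crabp1 on leaving out U1, U3 or D2 (highest adjusted p = 0.0805).

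Of 34 mesenchymal, tendon and skeletal transcription factors, 10 rose and 1 fell (median 0.98, with 2 to 14 rises and 0 to 1 falls when 1 library was left out). Sox9, a regulator of cartilage that hair follicle and glandular cells also use, rose from 2.32, 3.49 and 2.02 CPM to 46.8, 41 and 19.3 CPM (log2 fold change 3.73 ± 0.52 SE, edgeR adjusted p = 0.00448). Meox2, a homeobox factor of mesenchyme, rose from 1.95, 1.71 and 1.73 CPM to 23.3, 25.8 and 3.59 CPM (log2 fold change 3.28 ± 0.62 SE, edgeR adjusted p = 0.0132). Heyl, a target of Notch signalling, rose from 0.488, 0.919 and 0.722 CPM to 6.57, 8.77 and 3.23 CPM (log2 fold change 3.07 ± 0.59 SE, edgeR adjusted p = 0.0142). Each was lowest among wounded libraries in replicate 3, which for Meox2 was over 6 times below the others. Msx2, a homeobox factor of skull and hair follicle, rose from 0, 0.674 and 0 CPM to 31.8, 11.2 and 5.63 CPM (log2 fold change 5.68 ± 1.11 SE, edgeR adjusted p = 0.0151). The fall was that of the tendon regulator scleraxis. Scx fell from 22.4, 21.6 and 10.4 CPM to 4.42, 6.35 and 2.99 CPM (log2 fold change -1.98 ± 0.52 SE, edgeR adjusted p = 0.0441). Of 11 (of 23 listed) skeletal and chondroid matrix genes tested 1 rose, beside 5.9% of all tested genes (0 to 3 rises when 1 library was left out). This was the cartilage proteoglycan gene Acan. It had 2 reads over the uninjured and 68 over the day 7 libraries (ratio 38.3, 95% counting interval 10.2 to 323). In each fit without 1 library Sox9 passed. Scx was not called on leaving out any 1 library, and Meox2 on leaving out U1, U3, D1 or D2 (highest adjusted p per gene from 0.0578 to 0.144). Heyl went uncalled on leaving out U1, U3 or D2, and Msx2 on leaving out U1, U3 or D1 (highest adjusted p per gene from 0.0613 to 0.0708). Acan was no longer called on leaving out U1, U2 or U3 (highest adjusted p = 0.117). Acan did not pass the filter on low counts on leaving out D1 or D2.

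In the platelet-derived growth factor (PDGF) pathway, ligand dimers made by platelets, endothelium and macrophages bind a pair of receptor kinases on mesenchymal cells. Of 23 genes of the list 3 rose and 0 fell (median 0.52, with 1 to 6 rises when 1 library was left out). Among ligands, Pdgfb rose from 3.17, 1.84 and 1.16 CPM to 15.4, 14.3 and 5.27 CPM (log2 fold change 2.5 ± 0.52 SE, edgeR adjusted p = 0.0192). Pdgfa was at 25, 27.4 and 17.8 CPM in uninjured skin, at 43, 35.7 and 26 CPM on day 7, and did not pass (log2 fold change 0.57 ± 0.30 SE, edgeR adjusted p = 0.235). The day 7 values of Pdgfb all exceeded the uninjured ones, whereas those of Pdgfa overlapped them. Among receptors, Pdgfrb rose from 3.05, 8.21 and 7.22 CPM to 41.5, 32.6 and 12.1 CPM (log2 fold change 2.21 ± 0.50 SE, edgeR adjusted p = 0.026). Pdgfra was at 7.07, 11.1 and 4.48 CPM in uninjured skin, at 25.2, 21.6 and 8.5 CPM on day 7, and did not pass (log2 fold change 1.27 ± 0.47 SE, edgeR adjusted p = 0.119). Pdgfrl, a receptor-like protein without a kinase, rose from 0.976, 0.551 and 1.16 CPM to 12.8, 20.6 and 22.5 CPM (log2 fold change 4.43 ± 0.44 SE, edgeR adjusted p = 0.000944). Pdgfb and Pdgfrb were lowest among wounded libraries in replicate 3, and Pdgfrl was highest there. The summed level of 4 pericyte markers was also lowest there (87.6, 98.3 and 32.7 CPM, against 19.8, 41.6 and 12.8 CPM in uninjured libraries), and its part was not tested. Among all genes that rose, 87.1% were lowest there among wounded libraries. Omitting 1 library at a time left Pdgfrl called. Pdgfrb did not pass on leaving out any 1 library other than D3, and Pdgfb on leaving out U2, U3, D1 or D2 (highest adjusted p per gene from 0.0767 to 0.103). A call was added without day 7 replicate 3 for Pdgfra (log2 fold change 1.61, edgeR adjusted p = 0.0259).

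In the fibroblast growth factor list, 2 of 23 rose and 1 fell (1 to 4 rises and 0 to 3 falls when 1 library was left out), beside 5.9% and 1.77% of all tested genes. The ligand gene Fgf7, which stromal cells supply to epithelium, rose from 1.71, 3.0 and 1.59 CPM to 7.02, 7.74 and 5.03 CPM (log2 fold change 1.62 ± 0.42 SE, edgeR adjusted p = 0.0433). The receptor gene Fgfr2 rose from 22.6, 16.3 and 18.5 CPM to 96.3, 77.7 and 43.1 CPM (log2 fold change 1.92 ± 0.30 SE, edgeR adjusted p = 0.00682). Fgf13, an intracellular member that is not secreted, fell from 65.7, 54.4 and 53.9 CPM to 30.1, 30.4 and 33.1 CPM (log2 fold change -0.89 ± 0.21 SE, edgeR adjusted p = 0.0276). The groups were separate in all 3, and the day 7 values of Fgf13 were close together. Fgfr2 stayed called with any 1 library left out. Fgf13 missed the threshold on leaving out any 1 library other than D3, and Fgf7 on leaving out U1, U3, D1 or D2 (highest adjusted p per gene from 0.124 to 0.155).

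Of 46 TGF-beta, activin and BMP genes 3 rose and 3 fell (median 0.35, with 2 to 11 rises and 0 to 5 falls when 1 library was left out), beside 5.9% and 1.77% of all tested genes. Besides Bmp1, the rises were those of a ligand and a secreted follistatin-like protein. The ligand gene Gdf11 rose from 0.488, 0.674 and 0.433 CPM to 5.09, 3.27 and 1.44 CPM (log2 fold change 2.55 ± 0.67 SE, edgeR adjusted p = 0.0423). Fstl1 rose from 44.5, 81 and 26.3 CPM to 327, 497 and 257 CPM (log2 fold change 2.83 ± 0.45 SE, edgeR adjusted p = 0.00721). The falls were those of a ligand, a BMP target and a secreted protease that binds TGF-beta ligands. The ligand gene Gdf5 fell from 4.15, 7.59 and 6.93 CPM to 0.566, 0.187 and 0.479 CPM (log2 fold change -3.91 ± 0.69 SE, edgeR adjusted p = 0.00996). The target Id3 fell from 395, 442 and 387 CPM to 195, 256 and 187 CPM (log2 fold change -0.94 ± 0.24 SE, edgeR adjusted p = 0.0399). The protease gene Htra3 fell from 689.6, 486 and 471 CPM to 113, 204 and 280.2 CPM (log2 fold change -1.46 ± 0.37 SE, edgeR adjusted p = 0.0373). In all 5 the groups were apart. Fstl1 passed in all 6 fits without 1 library. Gdf11, Id3 and Htra3 missed the threshold on leaving out any 1 library other than D3, and Gdf5 on leaving out D2 (highest adjusted p per gene from 0.0516 to 0.174).

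Of 41 Wnt ligands, modulators and targets, 6 rose and 0 fell (median 0.94, with 2 to 13 rises when 1 library was left out). The secreted modulator gene Sfrp2 rose from 0, 0.857 and 0.289 CPM to 35.7, 71 and 27.9 CPM (log2 fold change 6.56 ± 0.66 SE, edgeR adjusted p = 0.000944). Ror2, a receptor of Wnt5a, rose from 0.366, 0.674 and 0.867 CPM to 11.7, 5.41 and 4.43 CPM (log2 fold change 3.47 ± 0.58 SE, edgeR adjusted p = 0.00848). Rnf43, which removes Wnt receptors, rose from 0.366, 0.245 and 0.144 CPM to 10.5, 3.27 and 1.56 CPM (log2 fold change 4.26 ± 0.83 SE, edgeR adjusted p = 0.0151). Sfrp2 was highest in day 7 replicate 2, and Ror2 and Rnf43 in replicate 1. Ccn4, a Wnt target, rose from 1.22, 2.51 and 0.289 CPM to 13, 29.6 and 13.9 CPM (log2 fold change 3.7 ± 0.73 SE, edgeR adjusted p = 0.0162). Calls for Sfrp2 and Ror2 stood in all fits that omitted 1 library. Rnf43 lost its call on leaving out U1, U2, U3 or D1, and Ccn4 on leaving out U1 or D2 (highest adjusted p per gene from 0.061 to 0.077).

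In the Notch list 8 of 18 rose and 0 fell (median 1.59, with 1 to 13 rises when 1 library was left out). Notch ligands on one cell bind receptors on its neighbour and switch on Hes and Hey genes. The endothelial ligand gene Dll4 rose from 0, 0.429 and 0 CPM to 4.64, 5.13 and 2.16 CPM (log2 fold change 4.28 ± 0.88 SE, edgeR adjusted p = 0.0189). The target Hes1 rose from 10.1, 12.2 and 7.22 CPM to 64.9, 38.6 and 17.2 CPM (log2 fold change 2.02 ± 0.42 SE, edgeR adjusted p = 0.019). All day 7 libraries were above all uninjured ones, with replicate 3 lowest. Blood endothelial markers were higher in the same libraries, and their part in the Notch values was not tested. Replicate 3 was also lowest in 87.1% of all genes that rose. Adjusted p exceeded 0.05 for Dll4 and Hes1 on leaving out U1, U3, D1 or D2 (highest adjusted p per gene from 0.0734 to 0.0763).

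Smaller signalling lists each held a few rises and 0 falls, beside 5.9% and 1.77% of all tested genes. Of 18 IGF genes 4 rose (median 0.62, with 1 to 6 rises when 1 library was left out). Igfbp6, a binding protein that prefers IGF2, rose from 11.5, 11.9 and 9.24 CPM to 55.7, 70.6 and 28.3 CPM (log2 fold change 2.24 ± 0.36 SE, edgeR adjusted p = 0.00748). Of 13 EGF family genes 2 rose, both of which luminal epithelium makes (1 to 3 rises when 1 library was left out). The median of this list was -0.01, with 6 members above 0 and 7 below. The ligand amphiregulin, Areg, rose from 0.244, 0 and 0.289 CPM to 30.00, 7.74 and 6.23 CPM (log2 fold change 6.6 ± 1.16 SE, edgeR adjusted p = 0.00996). The receptor gene Erbb3 rose from 4.63, 4.35 and 2.6 CPM to 34.3, 18.5 and 12.3 CPM (log2 fold change 2.47 ± 0.47 SE, edgeR adjusted p = 0.0133). Areg was far higher in day 7 replicate 1 than in replicates 2 and 3. Of 11 hedgehog genes 1 rose, near that share (0 to 5 rises when 1 library was left out). This transcription factor gene, Gli3, rose from 0.366, 1.16 and 0.722 CPM to 9.51, 6.81 and 2.28 CPM (log2 fold change 2.96 ± 0.64 SE, edgeR adjusted p = 0.0215). Among 35 axon guidance genes 4 rose (median 1.23, with 1 to 21 rises when 1 library was left out). The receptor gene Ephb3 rose from 3.05, 4.65 and 2.6 CPM to 28.3, 22.8 and 13.7 CPM (log2 fold change 2.62 ± 0.37 SE, edgeR adjusted p = 0.00473). The calls of Igfbp6, Areg and Ephb3 held with any 1 library left out. The test no longer called Gli3 on leaving out U1, U3, D1 or D2, and Erbb3 on leaving out U1, U3 or D1 (highest adjusted p per gene from 0.0542 to 0.0902).

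Of 23 retinoid and steroid genes tested, those that rose included Crabp1. Stra6, a retinol transporter, rose from 0.122, 0.184 and 0 CPM to 1.58, 3.45 and 1.08 CPM (log2 fold change 3.96 ± 0.91 SE, edgeR adjusted p = 0.0272). It was lowest among wounded libraries in replicate 3, and its groups did not overlap. Of 25 integrin genes 5 rose and 0 fell (median 1.01, with 0 to 10 rises when 1 library was left out). Itga5, a chain of the fibronectin receptor, rose from 8.66, 5.08 and 5.34 CPM to 18.7, 31 and 12.5 CPM (log2 fold change 1.71 ± 0.38 SE, edgeR adjusted p = 0.0236). Stra6 and Itga5 lost their calls on leaving out any 1 library other than D3 (highest adjusted p per gene from 0.114 to 0.117).

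In the prostaglandin and leukotriene list 4 of 21 rose and 2 fell (median 0.86, with 1 to 5 rises and 0 to 3 falls when 1 library was left out). Among enzymes, Ptgds, which makes prostaglandin D2, rose from 0.61, 0.857 and 0.578 CPM to 10.5, 9.42 and 15.3 CPM (log2 fold change 4.04 ± 0.45 SE, edgeR adjusted p = 0.00145). Ptgis, which makes prostacyclin, rose from 0.366, 0.367 and 0.289 CPM to 2.49, 4.67 and 1.56 CPM (log2 fold change 3.03 ± 0.65 SE, edgeR adjusted p = 0.0219). The receptors changed in opposite directions. Ptger3, the prostaglandin E2 receptor that restrains lipolysis in fat, fell from 708, 339 and 708 CPM to 88, 172 and 246 CPM (log2 fold change -1.79 ± 0.39 SE, edgeR adjusted p = 0.023). Ptgfr, the prostaglandin F receptor, fell from 100.1, 51 and 43 CPM to 4.87, 12.4 and 7.79 CPM (log2 fold change -2.94 ± 0.54 SE, edgeR adjusted p = 0.0122). The prostaglandin E2 receptor gene Ptger4 rose from 2.07, 1.35 and 1.01 CPM to 10.8, 5.13 and 5.15 CPM (log2 fold change 2.23 ± 0.56 SE, edgeR adjusted p = 0.0379). In none of these genes did the groups overlap. In each fit without 1 library Ptgds passed. No call was made for Ptgis and Ptger4 on leaving out any 1 library other than D3, and Ptger3 on leaving out U1, U3, D1 or D2 (highest adjusted p per gene from 0.0895 to 0.162). Ptgfr was not called on leaving out U1 or D1 (highest adjusted p = 0.0536).

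No adipocyte identity marker passed the test with all libraries, and the median of the list was below 0. Of 21 tested, 0 rose and 0 fell in edgeR (median -0.53, with 0 to 11 falls when 1 library was left out), with 1 higher and 7 lower at an unadjusted p under 0.05, and 0 rose and 2 fell in DESeq2. In 4 of them all day 7 libraries lay below all uninjured ones, as they did in 13.5% of all tested genes. Adipoq, adiponectin, was at 4908, 5404 and 5400.5 CPM in uninjured skin, at 1803, 2789 and 5177 CPM on day 7, and did not pass (log2 fold change -0.69 ± 0.39 SE, edgeR adjusted p = 0.277). Plin1, the coat protein of lipid droplets, was at 871, 849 and 876 CPM in uninjured skin, at 359, 504 and 782 CPM on day 7, and did not pass (log2 fold change -0.66 ± 0.29 SE, edgeR adjusted p = 0.181). Pparg, the regulator of adipocyte differentiation, was at 283, 203 and 249 CPM in uninjured skin, at 96.8, 124 and 203 CPM on day 7, and did not pass (log2 fold change -0.80 ± 0.28 SE, edgeR adjusted p = 0.105). In these 3 genes day 7 replicates 1 and 2 lay below the uninjured range, and replicate 3 lay within it for Adipoq and Pparg. Cfd, the secreted protease adipsin, was at 46620.0, 54011 and 64849 CPM in uninjured skin, at 20661, 26036 and 55810.0 CPM on day 7, and did not pass (log2 fold change -0.69 ± 0.52 SE, edgeR adjusted p = 0.405). Fabp4, the fatty acid binding protein, was at 15974, 27507 and 15363 CPM in uninjured skin, at 21018, 22507 and 30925 CPM on day 7, and did not pass (log2 fold change 0.34 ± 0.43 SE, edgeR adjusted p = 0.638). Lep, the hormone leptin, was at 334, 189.9 and 122 CPM in uninjured skin, at 119.9, 231 and 268 CPM on day 7, and did not pass (log2 fold change -0.06 ± 0.38 SE, edgeR adjusted p = 0.932). In these 3 genes the groups overlapped, and replicate 3 was the highest wounded library. Without day 7 replicate 3, a fit in which 14.2% of all tested genes rose and 7.79% fell, 0 rose and 11 fell among the same markers, including Adipoq (log2 fold change -1.19, edgeR adjusted p = 0.0205), Plin1 (log2 fold change -1.0, edgeR adjusted p = 0.0181), Pparg (log2 fold change -1.15, edgeR adjusted p = 0.0106) and Cfd (log2 fold change -1.24, edgeR adjusted p = 0.0457).

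**Figure D4:**
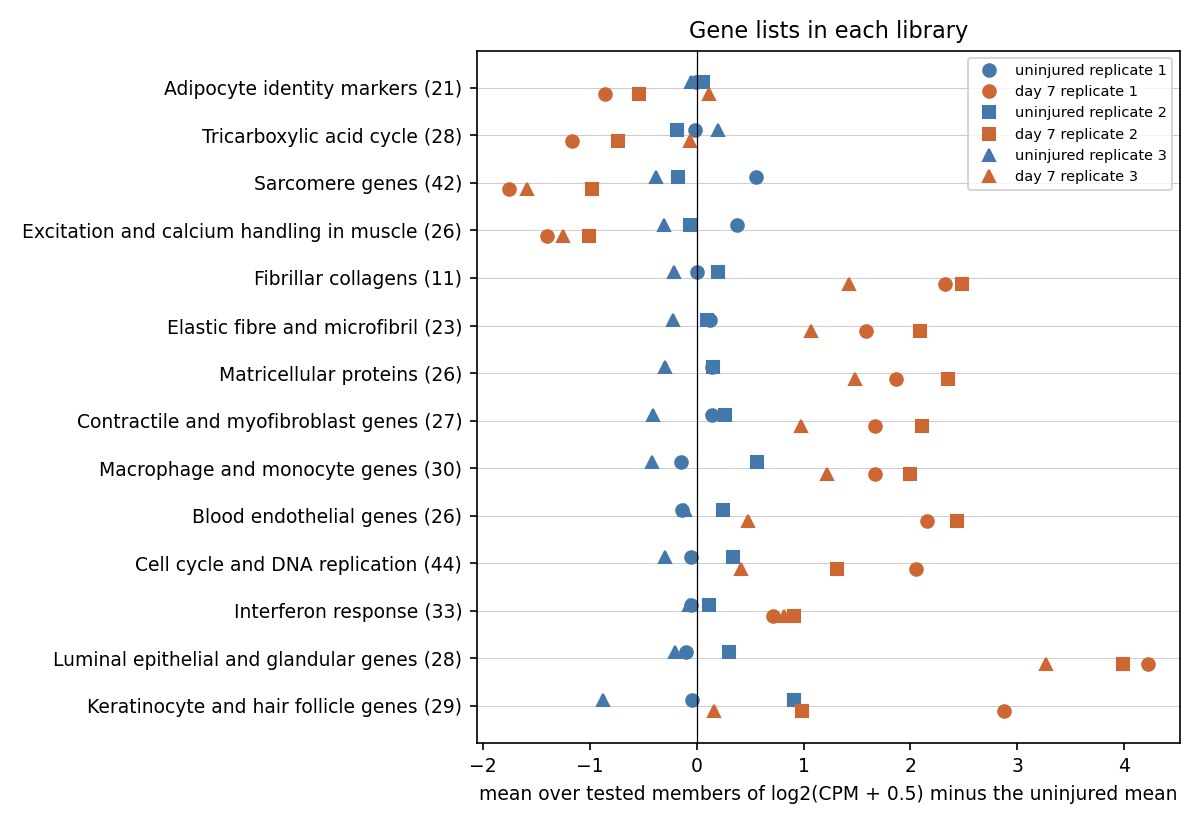
For 14 gene lists (number of tested members in parentheses), symbols give the mean over members of log2(CPM + 0.5) in each library minus the mean of the 3 uninjured libraries; blue is uninjured, orange day 7, and the shape gives the replicate. In day 7 replicate 3 (orange triangles) the adipocyte and tricarboxylic acid cycle lists lie at 0.11 and -0.06, beside the uninjured libraries, whereas its sarcomere, fibrillar collagen and luminal lists lie at -1.58, 1.42 and 3.26, with the other wounded libraries.

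Metabolic lists of fat cells followed the same split between libraries. Lists were scored in each library as the mean log2(CPM + 0.5) of their tested members minus the uninjured mean. The tricarboxylic acid cycle list (28 genes) scored -1.16, -0.73 and -0.06 in day 7 replicates 1, 2 and 3. In it 0 rose and 0 fell in edgeR (median -0.51, with 0 to 17 falls when 1 library was left out), with 0 higher and 6 lower at an unadjusted p under 0.05, and 0 rose and 4 fell in DESeq2. Branched-chain amino acid breakdown, a fuel route of adipocytes, scored -1.08, -0.46 and 0.02. Lipid droplet and triglyceride storage scored -1.03, -0.61 and -0.05. In all 3 lists replicate 3 was near the uninjured mean and the other day 7 libraries were lower. Without replicate 3 the falls were 17 of 28, 14 of 22 and 10 of 22 members, beside 7.79% of all tested genes.

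With all libraries, 1 branched-chain gene rose and 2 lipid droplet genes fell. Bcat1, a branched-chain aminotransferase, rose from 0.488, 0.796 and 1.16 CPM to 6.23, 13.9 and 4.67 CPM (log2 fold change 3.34 ± 0.57 SE, edgeR adjusted p = 0.00898). In its list of 22 genes, 1 had a log2 fold change above 0 and 21 below. Pnpla2, the lipase that starts triglyceride breakdown, fell from 2398, 2029.7 and 2631 CPM to 371, 758 and 1266 CPM (log2 fold change -1.56 ± 0.40 SE, edgeR adjusted p = 0.0397). Fitm1, a lipid droplet protein typical of muscle, fell from 36.8, 22.4 and 12.1 CPM to 3.17, 5.23 and 5.27 CPM (log2 fold change -2.38 ± 0.41 SE, edgeR adjusted p = 0.0092). The groups were separate in all 3. Fitm1 was highest in uninjured replicate 1, as muscle markers were, and the part of muscle in it was not tested. The lipogenesis list held 1 rise among 20 genes (0 to 1 rises and 0 to 4 falls when 1 library was left out), beside 5.9% of all tested genes. The desaturase gene Fads2 rose from 2.07, 1.9 and 2.46 CPM to 14, 17 and 8.14 CPM (log2 fold change 2.61 ± 0.61 SE, edgeR adjusted p = 0.0287). Of 16 (of 19 listed) thermogenic genes tested 1 fell (0 to 2 falls when 1 library was left out). Cox7a1, a respiratory subunit of muscle and brown fat, fell from 116, 57.1 and 44.9 CPM to 14.3, 17.5 and 19.2 CPM (log2 fold change -2.09 ± 0.44 SE, edgeR adjusted p = 0.0209). Of 24 adipogenic transcription factors 1 rose (1 to 6 rises and 0 to 5 falls when 1 library was left out), again beside 5.9% of all tested genes. Gata3, an inhibitor of adipogenesis that luminal epithelium and hair follicle also express, rose from 9.64, 8.02 and 10.7 CPM to 205, 91.4 and 59.5 CPM (log2 fold change 3.65 ± 0.49 SE, edgeR adjusted p = 0.00392). It was highest in day 7 replicate 1, as hair follicle keratins were, and the part of follicle or luminal cells in it was not tested. Leaving out any 1 library kept the calls of Bcat1, Fitm1 and Gata3. Pnpla2 and Fads2 were no longer called on leaving out any 1 library other than D3, and Cox7a1 on leaving out U1, D1 or D2 (highest adjusted p per gene from 0.0878 to 0.148).

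Several other lists of fat cell metabolism had 0 rises and 0 falls in edgeR. Of 17 insulin response genes (median -0.27, with 0 to 2 rises and 0 to 3 falls when 1 library was left out) there were 2 higher and 1 lower at an unadjusted p under 0.05, and 0 rose and 0 fell in DESeq2. Of 22 cholesterol genes (median -0.43) the counts were 1 higher and 2 lower at an unadjusted p under 0.05, and 0 rose and 0 fell in DESeq2. For 22 (of 23 listed) fatty acid oxidation genes (median -0.34, with 0 to 6 falls when 1 library was left out) they were 0 higher and 3 lower at an unadjusted p under 0.05, and 0 rose and 1 fell in DESeq2. For 41 nuclear respiratory chain genes (median -0.37, with 0 to 10 falls when 1 library was left out) they were 0 higher and 0 lower at an unadjusted p under 0.05, and 0 rose and 0 fell in DESeq2. All 4 medians were below 0, and the median of all tested genes was 0.04. Without day 7 replicate 3 the falls were 3 of 17 insulin response genes, 1 of 22 cholesterol genes, 6 of 22 fatty acid oxidation genes and 10 of 41 respiratory chain genes, beside 7.79% of all tested genes, and 2 insulin response genes rose.

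Among the abundant genes that fell were secreted and antioxidant proteins. Gpx3, the extracellular glutathione peroxidase, fell from 13584, 23788 and 24214 CPM to 3495, 5174 and 7991 CPM (log2 fold change -1.89 ± 0.45 SE, edgeR adjusted p = 0.0321). Pon1, the esterase of high-density lipoprotein, fell from 431, 310.3 and 733 CPM to 8.38, 25.6 and 41.2 CPM (log2 fold change -4.29 ± 0.68 SE, edgeR adjusted p = 0.00728). Prdx6, a peroxiredoxin, fell from 1099, 724 and 1166 CPM to 246, 349.7 and 524 CPM (log2 fold change -1.42 ± 0.32 SE, edgeR adjusted p = 0.026). The groups did not overlap in these 3 genes, and day 7 replicate 1 was lowest and replicate 3 highest in each. Pon1 had the largest fall among genes of at least 20 CPM. Gas6, a ligand of TAM receptors, fell from 3174, 3021 and 3497 CPM to 445, 1404 and 1302 CPM (log2 fold change -1.62 ± 0.43 SE, edgeR adjusted p = 0.0452). Mt1, a metal-binding metallothionein, fell from 2176, 3333 and 813 CPM to 391, 476 and 449 CPM (log2 fold change -2.26 ± 0.44 SE, edgeR adjusted p = 0.0141). Agt, angiotensinogen, which fat cells secrete, was singled out after its values were seen. It fell from 438, 508 and 808 CPM to 70.5, 104 and 164 CPM (log2 fold change -2.37 ± 0.39 SE, edgeR adjusted p = 0.00793). In the table Pon1 (ENSMUSG00000002588.14) spans chromosome 6 from 5168090 to 5193946, and Gpx3 (ENSMUSG00000018339.13) spans chromosome 11 from 54793279 to 54801203. Pon1 and Agt passed in all 6 fits without 1 library. Calls were lost for Gpx3 and Gas6 on leaving out any 1 library other than D3, and Prdx6 on leaving out U1, U3, D1 or D2 (highest adjusted p per gene from 0.114 to 0.149). Mt1 went uncalled on leaving out U1, D1 or D2 (highest adjusted p = 0.0622).

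Iron and oxidative stress genes were mixed, with 3 rises and 3 falls among 29 (1 to 3 rises and 0 to 8 falls when 1 library was left out). The falls were Gpx3, Mt1 and Prdx6. The iron exporter gene Slc40a1 rose from 4.88, 4.41 and 3.03 CPM to 24.1, 23.4 and 17.2 CPM (log2 fold change 2.38 ± 0.31 SE, edgeR adjusted p = 0.00337). Hpx, a haem-binding plasma protein, rose from 1.1, 5.14 and 0.433 CPM to 10.6, 79.97 and 34.1 CPM (log2 fold change 4.08 ± 0.82 SE, edgeR adjusted p = 0.0168). Hmox1, which breaks down haem, rose from 16.2, 21.8 and 19.9 CPM to 61.4, 49.2 and 30.7 CPM (log2 fold change 1.28 ± 0.34 SE, edgeR adjusted p = 0.0443). The groups were separate in all 3, and Hpx was far higher in day 7 replicate 2. Haemoglobin RNA was higher too. Hbb-bs rose from 21.2, 25.8 and 57.8 CPM to 61.6, 413 and 114 CPM (log2 fold change 2.5 ± 0.62 SE, edgeR adjusted p = 0.0366). Hbb-bt rose from 10.7, 13.2 and 23.7 CPM to 23.3, 163 and 47 CPM (log2 fold change 2.31 ± 0.60 SE, edgeR adjusted p = 0.0413). Both had their highest value in day 7 replicate 2, and Hbb-bt in day 7 replicate 1 lay within the uninjured range. The 2 genes are near-identical copies, so how their reads were shared out is uncertain. Among 24 glutathione transferases and lipoprotein esterases Pon1 fell and Gpihbp1 rose (1 to 9 falls when 1 library was left out). Gpihbp1, which holds lipoprotein lipase on capillary endothelium, rose from 1.95, 2.57 and 1.88 CPM to 26.3, 27.3 and 13.5 CPM (log2 fold change 3.36 ± 0.36 SE, edgeR adjusted p = 0.00118). Without any 1 of the 6 libraries, Slc40a1 and Gpihbp1 still passed. Hmox1 was no longer called on leaving out any 1 library other than D3, and Hbb-bs and Hbb-bt on leaving out U1, U2, U3 or D2 (highest adjusted p per gene from 0.14 to 0.167). Hpx did not pass on leaving out U1, U3 or D2 (highest adjusted p = 0.0739).

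Skeletal muscle lists held the most falls of all lists. Of 42 sarcomere genes 25 fell and 2 rose (median -1.94, with 0 to 2 rises and 14 to 25 falls when 1 library was left out). Of 26 excitation and calcium handling genes 12 fell and 0 rose (5 to 12 falls when 1 library was left out). Of 29 muscle energy genes 12 fell and 0 rose (8 to 22 falls when 1 library was left out). Tnnt3, a troponin of fast fibres, fell from 2409.6, 1724 and 1102 CPM to 199, 356 and 325 CPM (log2 fold change -2.57 ± 0.37 SE, edgeR adjusted p = 0.00511). Mybpc2, a myosin-binding protein of fast fibres, fell from 139, 116 and 101 CPM to 8.15, 16.3 and 11.9 CPM (log2 fold change -3.29 ± 0.37 SE, edgeR adjusted p = 0.00145). Pvalb, the calcium buffer of fast fibres, fell from 494, 671 and 349.8 CPM to 68.3, 96.7 and 123 CPM (log2 fold change -2.4 ± 0.33 SE, edgeR adjusted p = 0.0041). In these genes every day 7 library lay below every uninjured one. Atp2a1, the calcium pump of the sarcoplasmic reticulum, fell from 517, 275 and 323 CPM to 42.1, 76.8 and 82.6 CPM (log2 fold change -2.47 ± 0.37 SE, edgeR adjusted p = 0.0060). Pygm, the glycogen phosphorylase of muscle, fell from 217, 106 and 103 CPM to 12.2, 13.4 and 20.1 CPM (log2 fold change -3.22 ± 0.39 SE, edgeR adjusted p = 0.00241). Ckm, creatine kinase, fell from 604, 380.4 and 268 CPM to 32.2, 70.7 and 74 CPM (log2 fold change -2.82 ± 0.43 SE, edgeR adjusted p = 0.00621). Day 7 replicate 1 was lowest in all 6 genes. In each fit without 1 library Tnnt3, Mybpc2, Pvalb, Atp2a1, Pygm and Ckm passed.

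The 2 sarcomere genes that rose encode troponins of slow and immature fibres. Tnni1 rose from 1.71, 0.857 and 1.88 CPM to 5.77, 13.8 and 8.5 CPM (log2 fold change 2.7 ± 0.65 SE, edgeR adjusted p = 0.0321). Tnnc1 rose from 1.1, 0.367 and 0 CPM to 8.49, 10.7 and 7.67 CPM (log2 fold change 4.16 ± 0.80 SE, edgeR adjusted p = 0.0142). The groups were separate for both, at levels of at most 13.8 CPM. Of 27 satellite cell and myogenic regulators 10 fell and 0 rose (median -1.51, with 5 to 10 falls when 1 library was left out). The members that fell were Myf6, Vgll2, Ankrd2, Trim63, Fbxo32, Hspb6, Hspb7, Smpx, Csrp3 and Apobec2, which mature fibres express. Myf6, the myogenic factor of adult fibres, fell from 51.5, 39.4 and 29 CPM to 4.64, 6.63 and 5.51 CPM (log2 fold change -2.83 ± 0.40 SE, edgeR adjusted p = 0.00473). Apobec2, a muscle member of the cytidine deaminase family, fell from 336, 140.0 and 132 CPM to 6.11, 17.2 and 15.3 CPM (log2 fold change -3.97 ± 0.47 SE, edgeR adjusted p = 0.00208). Trim63, a ubiquitin ligase of muscle wasting, fell from 63.7, 53.7 and 44.8 CPM to 4.87, 5.04 and 4.19 CPM (log2 fold change -3.52 ± 0.45 SE, edgeR adjusted p = 0.00292). No day 7 value came near the uninjured range. The stem cell regulator Pax7 was not tested, with 4, 5 and 4 reads in uninjured and 3, 5 and 13 in day 7 libraries. Omitting 1 library at a time left Myf6, Apobec2, Trim63 and Smpx called. Tnni1 missed the threshold on leaving out any 1 library other than D3, and Ankrd2 on leaving out U1, U3, D1 or D2 (highest adjusted p per gene from 0.119 to 0.207). Fbxo32 lost its call on leaving out U1, U2, U3 or D1, and Vgll2 and Csrp3 on leaving out U1, D1 or D2 (highest adjusted p per gene from 0.0932 to 0.151). The test no longer called Tnnc1 on leaving out U2 or D2 (highest adjusted p = 0.0546).

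Of 21 heat shock genes 5 fell and 1 rose (median -0.17, with 0 to 2 rises and 1 to 5 falls when 1 library was left out). The falls were Hspb2, Hspb6, Hspb7, Hspb8 and Cryab, small heat shock proteins that muscle makes in quantity. Hspb6 fell from 1245, 272 and 241 CPM to 19.9, 58 and 74.1 CPM (log2 fold change -3.53 ± 0.67 SE, edgeR adjusted p = 0.0135). Hspb7 fell from 718, 255 and 189 CPM to 15.8, 45.7 and 36.5 CPM (log2 fold change -3.56 ± 0.57 SE, edgeR adjusted p = 0.0074). Both were highest in uninjured replicate 1, as the summed muscle markers were, and the part of muscle was not tested. The rise was that of an inducible chaperone of the HSP70 family. Hspa1b rose from 9.39, 6.31 and 5.63 CPM to 46.1, 44.1 and 33.3 CPM (log2 fold change 2.53 ± 0.51 SE, edgeR adjusted p = 0.0167). It has a near-identical copy, which makes its count uncertain. Omitting 1 library at a time left Hspb7 called. Hspb2 was not called on leaving out any 1 library other than U3, and Hspa1b on leaving out any 1 library other than D3 (highest adjusted p per gene from 0.0666 to 0.187). Hspb8 went uncalled on leaving out U1, U3, D1 or D2, and Cryab on leaving out U1, U2, D1 or D2 (highest adjusted p per gene from 0.118 to 0.154). Hspb6 was no longer called on leaving out D1 or D2 (highest adjusted p = 0.0566).

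Vessel genes were higher, above all in 2 of the 3 day 7 libraries. Of 26 blood endothelial genes 16 rose and 0 fell (median 2.53, with 1 to 21 rises when 1 library was left out), and the list scored 2.16, 2.43 and 0.48 in day 7 replicates 1, 2 and 3. Egfl7, secreted by endothelium, rose from 14.1, 12.3 and 8.52 CPM to 109, 97.9 and 23.6 CPM (log2 fold change 2.71 ± 0.50 SE, edgeR adjusted p = 0.0124). Cldn5, a tight junction protein of vessels, rose from 4.27, 2.76 and 2.74 CPM to 29.7, 33.6 and 8.62 CPM (log2 fold change 2.88 ± 0.48 SE, edgeR adjusted p = 0.00848). Flt1, a VEGF receptor, rose from 2.56, 4.59 and 3.32 CPM to 33.6, 23.8 and 6.83 CPM (log2 fold change 2.59 ± 0.51 SE, edgeR adjusted p = 0.0153). In each of these all day 7 libraries lay above the uninjured ones and replicate 3 was the lowest of them. Robo4, an endothelial guidance receptor, rose from 1.46, 2.45 and 1.88 CPM to 21.7, 21.2 and 3.95 CPM (log2 fold change 2.99 ± 0.59 SE, edgeR adjusted p = 0.0163). Pecam1, the general endothelial adhesion protein, rose from 42.6, 59.7 and 50.8 CPM to 204, 156 and 66.7 CPM (log2 fold change 1.48 ± 0.35 SE, edgeR adjusted p = 0.0309). Of 26 angiogenic factors and receptors 6 rose and 0 fell (median 1.17, with 0 to 12 rises when 1 library was left out). Angpt2, an endothelial product of sprouting vessels, rose from 0.488, 0.612 and 0.867 CPM to 4.98, 6.81 and 4.19 CPM (log2 fold change 3.02 ± 0.53 SE, edgeR adjusted p = 0.00996). In the lymphatic list of 9 genes 0 rose and 0 fell in edgeR, with 2 higher and 1 lower at an unadjusted p under 0.05, and 1 rose and 1 fell in DESeq2. Cldn5 stayed called with any 1 library left out. Pecam1 did not pass on leaving out any 1 library other than D3, and Flt1 and Robo4 on leaving out U1, U3, D1 or D2 (highest adjusted p per gene from 0.0739 to 0.126). Angpt2 missed the threshold on leaving out U1 or D2, and Egfl7 on leaving out U3 (highest adjusted p per gene from 0.0524 to 0.0562).

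Pericytes and smooth muscle cells wrap these vessels. Their list had 7 rises and 1 fall among 18 (median 1.32, with 0 to 8 rises and 0 to 2 falls when 1 library was left out). Cnn1, a smooth muscle calponin, rose from 2.44, 3.06 and 3.47 CPM to 10.6, 29.2 and 11.6 CPM (log2 fold change 2.52 ± 0.57 SE, edgeR adjusted p = 0.0252). The fall was that of desmin, which skeletal muscle also makes. Des fell from 481, 322 and 226 CPM to 65.3, 129 and 95 CPM (log2 fold change -1.83 ± 0.39 SE, edgeR adjusted p = 0.0218). Of 16 (of 20 listed) Schwann cell and melanocyte genes 2 rose and 1 fell (0 to 4 rises and 0 to 1 falls when 1 library was left out). Besides Erbb3, the glial regulator gene Sox10 rose from 0.488, 0.429 and 0.722 CPM to 12.8, 14.5 and 5.27 CPM (log2 fold change 4.33 ± 0.93 SE, edgeR adjusted p = 0.0215). The myelin gene Mbp fell from 42.4, 31.2 and 33.9 CPM to 16, 17.4 and 16.4 CPM (log2 fold change -1.11 ± 0.23 SE, edgeR adjusted p = 0.0183). Sox10 is also made by glandular epithelium, and the part of either cell type in it was not tested. Sox10 lost its call on leaving out any 1 library other than D3, and Cnn1 on leaving out U1, U2, U3 or D2 (highest adjusted p per gene from 0.089 to 0.106). The test no longer called Mbp on leaving out U1, U3, D1 or D2, and Des on leaving out U1, D1 or D2 (highest adjusted p per gene from 0.0886 to 0.0934).

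Macrophage and monocyte genes rose in 10 of 30 cases with 0 falls (median 1.65, with 4 to 14 rises when 1 library was left out). Gpnmb, a glycoprotein of lipid-laden macrophages, rose from 2.32, 3.49 and 3.18 CPM to 33.8, 33.7 and 27.9 CPM (log2 fold change 3.39 ± 0.43 SE, edgeR adjusted p = 0.00281). Arg1, arginase of repair-phase macrophages, rose from 0.488, 0.98 and 0 CPM to 19, 20.4 and 5.75 CPM (log2 fold change 4.71 ± 0.77 SE, edgeR adjusted p = 0.00793). Lyz2, lysozyme, rose from 70.4, 97.9 and 42.7 CPM to 336, 582 and 254 CPM (log2 fold change 2.47 ± 0.50 SE, edgeR adjusted p = 0.0172). All day 7 libraries lay above all uninjured libraries in these genes. Ptprc, a surface phosphatase of all leukocytes, was at 5.24, 4.84 and 3.03 CPM in uninjured skin, at 11.1, 17.5 and 5.99 CPM on day 7, and did not pass (log2 fold change 1.39 ± 0.57 SE, edgeR adjusted p = 0.149). Of 14 (of 18 listed) neutrophil genes tested 3 rose (1 to 5 rises and 0 to 1 falls when 1 library was left out). The summed level of 4 neutrophil markers, of which 1 rose and 0 fell, was 74.3, 107 and 33.9 CPM in uninjured libraries. At day 7 it was 65.3, 83.2 and 41.0 CPM, so the groups overlapped. S100a9, a calcium-binding protein of neutrophils, rose from 1.71, 2.2 and 0.578 CPM to 18.3, 29.3 and 14 CPM (log2 fold change 3.7 ± 0.52 SE, edgeR adjusted p = 0.00456). Of 10 (of 14 listed) mast cell genes 3 rose (0 to 7 rises when 1 library was left out). Hdc, the enzyme that makes histamine, rose from 0.122, 0.612 and 1.16 CPM to 4.64, 9.14 and 2.52 CPM (log2 fold change 3.12 ± 0.71 SE, edgeR adjusted p = 0.0267). Kit, the stem cell factor receptor of mast cells and luminal cells, rose from 0.976, 1.04 and 2.31 CPM to 30.1, 26.6 and 13.3 CPM (log2 fold change 4.06 ± 0.70 SE, edgeR adjusted p = 0.00958). Calls for Gpnmb, Arg1 and S100a9 stood in all fits that omitted 1 library. Hdc was not called on leaving out U1, U2, D1 or D2, and Lyz2 on leaving out U1, U3 or D2 (highest adjusted p per gene from 0.0741 to 0.118). Kit went uncalled on leaving out U1 (highest adjusted p = 0.0525).

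Few lymphocyte genes could be measured. Of 22 T, B and NK cell genes 13 passed the filter, and 0 rose and 0 fell in edgeR, with 2 higher and 1 lower at an unadjusted p under 0.05, and 0 rose and 1 fell in DESeq2. Chemokines and their receptors rose in 10 of 34 (of 45 listed) tested, with 0 falls (median 1.66, with 0 to 14 rises when 1 library was left out). Ccl2, which draws monocytes, rose from 1.22, 1.65 and 0.144 CPM to 6.68, 11.2 and 7.67 CPM (log2 fold change 2.98 ± 0.62 SE, edgeR adjusted p = 0.0198). Cxcl5, which draws neutrophils, had 3 reads over the uninjured and 73 over the day 7 libraries (ratio 27.4, 95% counting interval 9.02 to 136). Cxcr4, the receptor of Cxcl12, had 0 reads in uninjured libraries and was at 4.3, 1.31 and 1.2 CPM in day 7 libraries, at least 6.92-fold higher with 3 counts per uninjured library as the floor. These chemokine genes had few reads. In the IL-1, TNF and IL-6 list 3 of 26 rose and 0 fell, beside 5.9% and 1.77% of all tested genes. Its median log2 fold change was 0.20, with 16 members above 0 and 10 below. There were 0 to 3 rises and 0 to 1 falls in it when 1 library was left out. The cytokine gene Tnf rose from 0.122, 0.245 and 0 CPM to 1.92, 3.92 and 1.2 CPM (log2 fold change 3.89 ± 0.84 SE, edgeR adjusted p = 0.0223). Il33, an alarmin of stroma and endothelium, rose from 6.71, 4.04 and 2.31 CPM to 18.5, 17.4 and 10.9 CPM (log2 fold change 1.83 ± 0.44 SE, edgeR adjusted p = 0.0316). Its receptor gene Il1rl1 rose from 0.854, 0.674 and 1.16 CPM to 4.98, 4.01 and 3.47 CPM (log2 fold change 2.23 ± 0.51 SE, edgeR adjusted p = 0.0274). Ligand and receptor were both higher, with separate groups. Of 27 complement genes 4 rose and 0 fell (median 0.04, with 1 to 7 rises and 0 to 3 falls when 1 library was left out). C1ra, the protease that starts the classical pathway, rose from 42.6, 54.8 and 32.4 CPM to 387, 353 and 225 CPM (log2 fold change 2.89 ± 0.42 SE, edgeR adjusted p = 0.00511). C1ra passed in all 6 fits without 1 library. Il1rl1 was no longer called on leaving out any 1 library other than D3, and Cxcr4 on leaving out U1, U2, U3 or D1 (highest adjusted p per gene from 0.0702 to 0.106). Il33 did not pass on leaving out U2, U3, D1 or D2, and Tnf on leaving out U1, U3 or D1 (highest adjusted p per gene from 0.0894 to 0.11). Ccl2 and Cxcl5 did not pass on leaving out U1 or D2 (highest adjusted p per gene from 0.0573 to 0.0805). Cxcr4 did not pass the filter on low counts on leaving out D2. Tnf did not pass the filter on low counts on leaving out D2.

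Interferon response genes were higher to a like degree in all 3 wounded libraries, with scores of 0.71, 0.91 and 0.82 in day 7 replicates 1, 2 and 3. Of 33 tested, 9 rose and 0 fell (median 0.44, with 3 to 10 rises when 1 library was left out). Isg15, a ubiquitin-like modifier, rose from 7.32, 6.68 and 6.5 CPM to 18, 27.6 and 23.7 CPM (log2 fold change 1.76 ± 0.27 SE, edgeR adjusted p = 0.00661). Ifit1, which binds foreign RNA, rose from 1.34, 1.96 and 2.02 CPM to 10.8, 9.24 and 11 CPM (log2 fold change 2.53 ± 0.37 SE, edgeR adjusted p = 0.00511). Usp18, which removes Isg15 from proteins, rose from 5.24, 2.63 and 3.03 CPM to 12.6, 17.9 and 13.2 CPM (log2 fold change 2.01 ± 0.36 SE, edgeR adjusted p = 0.011). No day 7 library fell within the uninjured range of these genes. Oasl2, a protein related to oligoadenylate synthetases, rose from 3.05, 4.1 and 2.74 CPM to 17, 18.5 and 9.94 CPM (log2 fold change 2.18 ± 0.38 SE, edgeR adjusted p = 0.00986). The calls of Isg15 and Ifit1 held with any 1 library left out. Usp18 missed the threshold on leaving out D2, and Oasl2 on leaving out U1 (highest adjusted p per gene from 0.0525 to 0.0542).

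Of 28 antimicrobial and innate defence genes 6 rose and 0 fell (median 1.02, with 2 to 8 rises when 1 library was left out). Saa3, a serum amyloid protein that inflamed fat makes, rose from 44, 221 and 7.8 CPM to 489, 1619 and 925 CPM (log2 fold change 3.47 ± 0.92 SE, edgeR adjusted p = 0.044). It was among the 10 most abundant genes that rose, and its uninjured values spread over more than 20-fold. Slpi, an inhibitor of leukocyte proteases, rose from 1.71, 2.57 and 1.44 CPM to 14.3, 18.7 and 10.9 CPM (log2 fold change 2.9 ± 0.42 SE, edgeR adjusted p = 0.0048). Of 34 lysosomal genes 3 rose, the cathepsins Ctsh, Ctsk and Ctss (0 to 5 rises and 0 to 3 falls when 1 library was left out), beside 5.9% of all tested genes. Ctsk, which cuts collagen, rose from 12.7, 24.7 and 11.3 CPM to 99.8, 136 and 73.3 CPM (log2 fold change 2.65 ± 0.46 SE, edgeR adjusted p = 0.00971). In each fit without 1 library Slpi passed. Not called were Saa3 and Ctsh on leaving out U1, U3, D1 or D2, and Ctsk and Ctss on leaving out U1 (highest adjusted p per gene from 0.0525 to 0.153).

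Luminal epithelial genes rose in 22 of 28 (of 32 listed) tested, the largest share of any of the lists, with 0 falls (median 4.68, with 8 to 25 rises when 1 library was left out). Such genes mark the inner cells of ducts, as in mammary and sweat glands. The keratin gene Krt8 rose from 0.488, 0.674 and 0.433 CPM to 241, 298 and 97.3 CPM (log2 fold change 8.53 ± 1.63 SE, edgeR adjusted p = 0.0137). Krt19 rose from 0.854, 1.29 and 0.722 CPM to 364, 382 and 167 CPM (log2 fold change 8.22 ± 1.32 SE, edgeR adjusted p = 0.00745). Csn3, kappa-casein, had 0 reads in uninjured libraries and was at 14.8, 21.6 and 32.9 CPM in day 7 libraries, at least 70.6-fold higher with 3 counts per uninjured library as the floor. In these genes the groups were far apart, and Csn3 was highest in day 7 replicate 3. Cldn7, a claudin of epithelial junctions, had 3 reads over the uninjured and 492 over the day 7 libraries (ratio 185, 95% counting interval 62.9 to 899.6). The milk gene Csn2 was not tested, with 1, 2 and 0 reads in uninjured and 1, 2 and 1 in day 7 libraries. Wap, another milk gene, had 0 reads in all 6. Of the 2 day 3 libraries, 1 had summed luminal markers of 1544 CPM and the other 23.5 CPM. The labels name adipocytes, and these are not adipocyte genes. Whether this RNA came with tagged ribosomes or as carry-over was not tested. Leaving out any 1 library kept the calls of Krt19, Csn3 and Cldn7. Krt8 lost its call on leaving out U1, U2 or U3 (highest adjusted p = 0.0655).

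Keratinocyte and hair follicle genes rose in 4 of 29 cases, all of them genes of the growing follicle (0 to 6 rises when 1 library was left out). The hair cycle phase at collection is not given for either group, and its part was not tested. Krt71, of the inner root sheath, rose from 0, 0.551 and 0 CPM to 410.1, 13 and 4.19 CPM (log2 fold change 8.99 ± 1.83 SE, edgeR adjusted p = 0.018). Krt25, of the same sheath, rose from 0.854, 0.551 and 0.867 CPM to 429.7, 9.52 and 1.56 CPM (log2 fold change 7.64 ± 1.81 SE, edgeR adjusted p = 0.0308). Krt35, of the hair shaft, rose from 0, 0.674 and 0 CPM to 234, 2.43 and 0.838 CPM (log2 fold change 7.88 ± 2.0 SE, edgeR adjusted p = 0.0388). Each was over 30 times higher in day 7 replicate 1 than in the other wounded libraries. Tchh, trichohyalin, rose from 0.122, 0.674 and 1.3 CPM to 235, 5.13 and 1.92 CPM (log2 fold change 6.87 ± 1.71 SE, edgeR adjusted p = 0.0362). The epidermal keratin gene Krt14 was at 444, 454 and 257 CPM in uninjured skin, at 1364, 626 and 442 CPM on day 7, and did not pass (log2 fold change 1.07 ± 0.50 SE, edgeR adjusted p = 0.195). Lost calls were those of Krt25 and Tchh on leaving out U1, U2, U3 or D1, and Krt71 and Krt35 on leaving out U1, U2 or U3 (highest adjusted p per gene from 0.0768 to 0.245). Krt35 did not pass the filter on low counts on leaving out D1 or D2.

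Cell cycle genes rose in 10 of 44 cases with 0 falls (median 1.8, with 1 to 27 rises when 1 library was left out). The list scored 2.05, 1.31 and 0.41 in day 7 replicates 1, 2 and 3. Birc5, survivin, rose from 2.56, 2.27 and 1.3 CPM to 29.3, 20.6 and 8.38 CPM (log2 fold change 3.23 ± 0.48 SE, edgeR adjusted p = 0.0060). Ccnd1, cyclin D1, rose from 1.22, 2.02 and 2.31 CPM to 19.6, 9.33 and 6.47 CPM (log2 fold change 2.66 ± 0.52 SE, edgeR adjusted p = 0.0151). Cenpa, the histone of centromeres, rose from 4.88, 4.72 and 2.31 CPM to 34.2, 27.5 and 10.5 CPM (log2 fold change 2.58 ± 0.55 SE, edgeR adjusted p = 0.021). These genes had no overlap, with day 7 replicate 1 highest and replicate 3 lowest. The proliferation marker Mki67 was at 1.95, 4.78 and 1.88 CPM in uninjured skin, at 33.7, 23 and 2.28 CPM on day 7, and did not pass (log2 fold change 2.73 ± 0.78 SE, edgeR adjusted p = 0.0566). Its value in day 7 replicate 3 lay within the uninjured range, and without that library the call was made for Mki67 (log2 fold change 3.24, edgeR adjusted p = 0.00404). Among 22 inhibitors of the cycle 1 rose (0 to 5 rises and 0 to 2 falls when 1 library was left out), and of 24 immediate early genes 1 rose (0 to 8 rises when 1 library was left out). Both counts are near the 5.9% of all tested genes that rose and give no result about these lists. The stress gene Gadd45g rose from 74.3, 66.3 and 86.4 CPM to 241, 179 and 147 CPM (log2 fold change 1.32 ± 0.26 SE, edgeR adjusted p = 0.0159). Fos rose from 9.03, 2.2 and 7.37 CPM to 50.5, 26.5 and 18.4 CPM (log2 fold change 2.39 ± 0.53 SE, edgeR adjusted p = 0.0233). Omitting 1 library at a time left Birc5 called. The call was lost for Cenpa and Fos on leaving out any 1 library other than D3, and Gadd45g on leaving out U1, U2, D1 or D2 (highest adjusted p per gene from 0.0815 to 0.099). The test no longer called Ccnd1 on leaving out U1 or D1 (highest adjusted p = 0.0743).

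Imprinted genes of fetal growth rose in 9 of 18 cases with 0 falls (median 1.17, with 4 to 11 rises when 1 library was left out). The noncoding RNAs Meg3, Rian and Mirg lie beside Dlk1 in 1 imprinted cluster. Meg3 rose from 5.24, 6.0 and 7.22 CPM to 252, 288 and 55.6 CPM (log2 fold change 5.01 ± 0.60 SE, edgeR adjusted p = 0.00229). Rian rose from 1.59, 1.22 and 1.44 CPM to 18.2, 28.6 and 5.75 CPM (log2 fold change 3.63 ± 0.58 SE, edgeR adjusted p = 0.00741). Mirg rose from 0.366, 0.306 and 0.144 CPM to 10.3, 5.6 and 2.04 CPM (log2 fold change 4.35 ± 0.72 SE, edgeR adjusted p = 0.00835). These noncoding RNAs were lowest among wounded libraries in replicate 3, in which Dlk1 was highest. Meg3, Rian and Mirg passed in all 6 fits without 1 library.

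Hox genes, which hold the body position of cells, gave 1 rise and 2 falls among 24 (of 39 listed) tested (1 to 8 rises and 0 to 4 falls when 1 library was left out), beside 5.9% and 1.77% of all tested genes. Hoxb4 rose from 1.1, 0.98 and 0.289 CPM to 15.1, 6.44 and 5.87 CPM (log2 fold change 3.46 ± 0.58 SE, edgeR adjusted p = 0.00889). Hoxa7 fell from 54.5, 40.4 and 43 CPM to 21.4, 19 and 19.3 CPM (log2 fold change -1.21 ± 0.21 SE, edgeR adjusted p = 0.00979). Hoxd8 fell from 62.8, 61.6 and 72.8 CPM to 20.5, 35.2 and 27.5 CPM (log2 fold change -1.24 ± 0.24 SE, edgeR adjusted p = 0.0135). None had overlapping groups. The clock list held 19 tested genes, and the hour of collection is not in the labels. Per3 rose from 5.73, 6.31 and 10.1 CPM to 26.3, 20.2 and 17.7 CPM (log2 fold change 1.54 ± 0.31 SE, edgeR adjusted p = 0.0166). Bhlhe41 rose from 6.46, 9.13 and 7.65 CPM to 29.8, 21.4 and 13.4 CPM (log2 fold change 1.47 ± 0.36 SE, edgeR adjusted p = 0.0341). The repressor gene Nr1d1 fell from 98.9, 77.3 and 132 CPM to 23.2, 45.2 and 54.3 CPM (log2 fold change -1.33 ± 0.32 SE, edgeR adjusted p = 0.032). No group overlapped in these genes. Hoxb4 stayed called with any 1 library left out. Bhlhe41 was not called on leaving out any 1 library other than D3, and Per3 on leaving out U1, U2, D1 or D2 (highest adjusted p per gene from 0.0871 to 0.139). Nr1d1 went uncalled on leaving out U1, U3, D1 or D2, and Hoxa7 on leaving out U1 or D2 (highest adjusted p per gene from 0.0573 to 0.112). Hoxd8 was no longer called on leaving out U1 or U3 (highest adjusted p = 0.0527).

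Genes of the translation machinery had few calls. Of 53 cytosolic ribosomal protein genes 1 rose and 1 fell (median 0.25, with 0 to 3 rises and 0 to 1 falls when 1 library was left out), beside 5.9% and 1.77% of all tested genes. Rps12 rose from 45.3, 77.5 and 53.4 CPM to 135, 119 and 128 CPM (log2 fold change 1.11 ± 0.24 SE, edgeR adjusted p = 0.021). Rpl10a, whose protein carries the GFP tag in the reporter, fell from 287, 261 and 323 CPM to 118, 115 and 195 CPM (log2 fold change -1.02 ± 0.26 SE, edgeR adjusted p = 0.041). Rangap1, looked up because the reporter carries its sequence, fell from 468, 378 and 523 CPM to 71.9, 113 and 262 CPM (log2 fold change -1.62 ± 0.42 SE, edgeR adjusted p = 0.0417). For Rpl10a and Rangap1 the groups did not overlap and day 7 replicate 3 was nearest to uninjured. The reporter cassette holds copies of both, and whether reads came from the cassette or from the endogenous genes was not tested. Of 40 translation factor and synthetase genes 1 fell (0 to 4 falls when 1 library was left out), beside 1.77% of all tested genes. Eef1a2, the elongation factor of muscle and nerve, fell from 3.78, 3.49 and 3.18 CPM to 0.679, 0.56 and 0.599 CPM (log2 fold change -2.49 ± 0.49 SE, edgeR adjusted p = 0.0158). In the ribosome biogenesis list of 24 genes 0 rose and 0 fell in edgeR, with 3 higher and 1 lower at an unadjusted p under 0.05, and 1 rose and 0 fell in DESeq2. Rpl10a and Rangap1 missed the threshold on leaving out any 1 library other than D3, and Rps12 on leaving out U1, U3, D1 or D2 (highest adjusted p per gene from 0.105 to 0.171). Eef1a2 did not pass on leaving out U1, D1 or D2 (highest adjusted p = 0.0767).

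RNAs that stay in the nucleus, or in mitochondria, are not substrates of cytosolic ribosomes, and some of them were higher. The nuclear RNA Malat1 rose from 453, 468 and 450.1 CPM to 4348, 2511 and 885 CPM (log2 fold change 2.5 ± 0.48 SE, edgeR adjusted p = 0.0143). Neat1, a nuclear RNA looked up beside it, was at 327, 272 and 365 CPM in uninjured skin, at 1347, 1018 and 408 CPM on day 7, and did not pass (log2 fold change 1.52 ± 0.44 SE, edgeR adjusted p = 0.0588). In both, day 7 replicate 1 was highest and replicate 3 was the wounded library nearest to uninjured. Rsrp1 and Srsf5 code for proteins, so they are not RNAs of this kind, and they rose too. Rsrp1 rose from 275, 208 and 284 CPM to 914, 870.4 and 496 CPM (log2 fold change 1.57 ± 0.32 SE, edgeR adjusted p = 0.0178). The splicing factor gene Srsf5 rose from 203, 178 and 174 CPM to 579, 529 and 315 CPM (log2 fold change 1.36 ± 0.28 SE, edgeR adjusted p = 0.0183). Long intergenic noncoding RNAs together made up 0.326%, 0.375% and 0.297% of counts in uninjured and 1.27%, 0.856% and 0.408% in day 7 libraries. Of 416 tested, 28 rose (6.73%) and 10 fell (2.4%), near the 5.9% and 1.77% of all tested genes. The sums thus give no result about the class as a whole. Of 14 (of 15 listed) mitochondrially encoded genes tested 4 rose and 0 fell, the 2 ribosomal RNAs and 2 subunits of cytochrome oxidase (0 to 8 rises when 1 library was left out). The ribosomal RNA mt-Rnr2 rose from 47.4, 141 and 51.6 CPM to 443, 498 and 146 CPM (log2 fold change 2.17 ± 0.51 SE, edgeR adjusted p = 0.0292). The subunit gene mt-Co1 rose from 68.2, 83.2 and 60.4 CPM to 129, 179 and 121 CPM (log2 fold change 1.02 ± 0.23 SE, edgeR adjusted p = 0.0252). How much RNA from outside tagged ribosomes each library held was not measured, and its part in the other results was not tested. Without replicate 3 a call was added for Neat1 (log2 fold change 1.88, edgeR adjusted p = 0.00846). Adjusted p exceeded 0.05 for Rsrp1 and Srsf5 on leaving out any 1 library other than D3, and mt-Rnr2 and mt-Co1 on leaving out U1, U3, D1 or D2 (highest adjusted p per gene from 0.0746 to 0.113). Malat1 missed the threshold on leaving out U1, U2 or U3 (highest adjusted p = 0.0739).

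Most calls were lost in at least 1 of the fits that left out a library. Among the 1101 rises, the day 7 library nearest to uninjured was replicate 3 in 959 (87.1%), and among the 330 falls it was replicate 3 in 169 and replicate 2 in 131. Without replicate 3 the test called 2616 rises and 1439 falls. Without any other single library it called 238 to 606 rises and 76 to 203 falls, with uninjured replicate 1 giving the fewest. Called in every one of these 6 fits were 199 rises and 63 falls, and 0 of the 1431 calls had the opposite sign in any of them. The values without replicate 3 are a description, since that library was singled out after its values were seen.

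**Figure D5:**
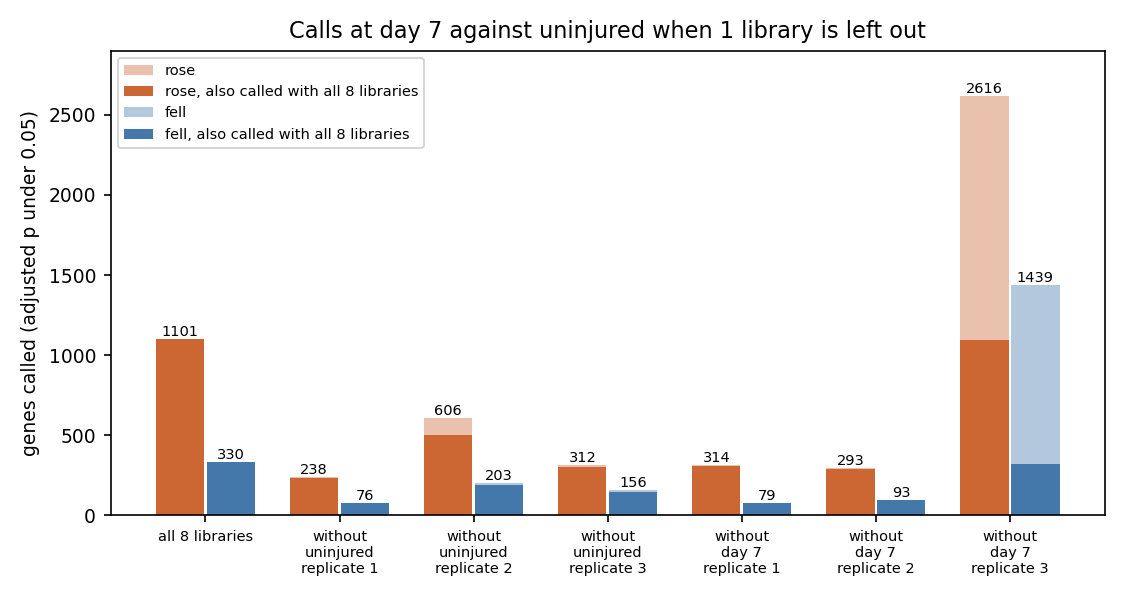
Number of genes called at an adjusted p under 0.05 with all 8 libraries in the model and after leaving out 1 uninjured or day 7 library; orange bars rose and blue bars fell, and the darker part of a bar counts genes also called with all libraries. Leaving out day 7 replicate 3 raised the rises from 1101 to 2616, and leaving out any other library lowered them to 238 to 606.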

How the data were processed

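RNA captured on GFP-tagged ribosomes was sequenced in 8 libraries of mouse skin: 3 uninjured, 3 from day 7 and 2 from day 3 after wounding. The deposited table holds raw read counts per gene, made by the authors with featureCounts 2.0.8 per the file headers, and the gene length in bases. STAR 2.7.10b, DESeq2 and mm10 are named in the submitters' processing notes. No source used here states the settings for strand and multi-mapping reads, which leaves paralogs, overlapping genes and antisense genes uncertain. Only 1491 of 52093 matched identifiers have the start that the GRCm38 annotation gives, so the build of the table's coordinates was not settled, and promoter windows carry their own RefSeq coordinates.

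Gene identifiers were matched to symbols. The 1607 of 53700 without a symbol held 0.0535% to 0.493% of counts per library. Genes with too few counts were removed by edgeR's filterByExpr at a minimum count of 10. The 8 libraries were fitted together (3 groups, 5 residual degrees of freedom) with TMM scaling in edgeR 4.0.16 under R 4.3.3, and day 7 was compared with uninjured by the quasi-likelihood test with Benjamini-Hochberg adjustment over all tested genes at 0.05. The steps were tested on simulated data. Genes with at most 3 counts over the uninjured libraries have a count ratio with an exact 95% interval that covers counting error only, or, at 0 counts, a bound from a floor of 3 counts per library. Depth, 6763290 to 17751689 counts in the 6 libraries, sets the precision of low genes.

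The comparison and the gene lists were chosen with earlier results of these data known. Named genes followed a rule: the 15 largest called changes in each direction at 20 CPM or more without overlap, up to 4 members of each list per direction, the 10 most abundant calls per direction and a fixed set of markers. Names outside it (Actb, Actc1, Actg1, Actg2, Agt, Neat1, Rangap1, Ankrd2, Fbxo32, Hspb2 and Vgll2, and the untested Pax7, Csn2 and Wap) were chosen after their values were seen. Results for 2 genes are not reported here. Alternatives were other scalings, DESeq2 1.42.0, other filters, 6 libraries only, a replicate block, a test against a fold of 1.5 and leaving out each library.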

Additional observations from a re-analysis of the deposited data

How the results depend on the processing

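Rises numbered 1101 and falls 330. DESeq2's Wald test gave 1857 and 644, no filter on low counts 2362 and 794, and a test against a fold of 1.5 gave 557 and 130. With DESeq2 size factors, upper-quartile scaling, a filter at a count of 50 or only the 6 libraries, rises stayed between 943 and 1173 and falls between 307 and 358. Leaving out 1 library gave 238 to 2616 rises and 76 to 1439 falls, and the reason for this span was not tested. With a replicate block in the model of 6 libraries the counts were 1883 and 683. Same-numbered uninjured and day 7 libraries did not deviate together in every pair (correlations across genes of -0.07, 0.12 and 0.30), so the numbers were not taken as pairs. Of the 223 genes named, those lost were 101 without uninjured replicate 1 and 2 without day 7 replicate 3. Ankrd2, Hspb2 and Scx missed the threshold with a filter at a count of 50 (adjusted p in edgeR of 0.0505, 0.0519 and 0.0517), as did Ankrd2 and Hspb2 with only the 6 libraries (0.0544 and 0.0563). The log2 fold change of Lep, which did not pass, turned from -0.06 to 0.03 under the replicate block and ranged from -0.34 to 0.39 with 1 library left out (0.39 without uninjured replicate 1 and 0.21 without day 7 replicate 1). No called gene changed sign in any alternative in which it was tested. The other scalings moved the median of all genes by -0.02 and 0.02 on the log2 scale, and a filter at a count of 50 moved it by 0.06.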
